A study of Mus musculus with 48 samples.

Results

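The injected and the uninjected side of the same brain were compared in kainate mice 3 days after injection. The members are 8 of the 48 RNA-seq libraries of the series, 1 from each side of 4 of the 24 mice, chosen by the recorded injection, side, day and mouse number, and all expressed genes were examined. The mice were wild-type C57BL/6J, 2 male and 2 female, and the sample records give an age of 6 to 8 weeks, whereas the study's methods give 8 to 10 weeks. Kainate had been delivered by 1 unilateral injection into the hippocampus, and every kainate mouse had shown behavioral seizures within the observation period. The dorsal dentate gyrus of the injected hemisphere represented the epileptogenic zone (EZ), and that of the other hemisphere the peri-ictal zone (PIZ). Both libraries of a kainate mouse therefore came from a brain that had been through status epilepticus, and the PIZ is not an untreated control. Mice of the same strain and age with a unilateral saline injection, 4 at day 3, had no behavioral seizures and gave the same comparison of sides without kainate. Each mouse was a separate animal and no tissue was pooled, but the injection itself, the needle track and the hemisphere go together with the side in every mouse.

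Kainate activates a class of glutamate receptors and drives neurons of the hippocampus into prolonged seizures. In this model of mesial temporal lobe epilepsy, interneurons and mossy cells of the hilus and pyramidal cells near the injection are known to die, granule cells persist and later disperse, and microglia and astrocytes become reactive. Seizure activity is also known to switch on immediate early genes, neuropeptides and growth factors in granule cells. The comparison asks which of these gene programs were higher on the injected than on the opposite side of the same brain after 3 days.

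Library totals lay between 22141147 and 25712975 counts in the EZ and between 20503042 and 24718937 counts in the PIZ, and between 17762656 and 25712975 over all 48 libraries. Levels are CPM, read counts scaled to library size after TMM normalization, and single libraries are given in the order of mice 38, 30, 44 and 42. Prox1, which marks granule cells, was at 204, 272, 264 and 249.7 CPM in the EZ against 221, 247, 251 and 212 CPM in the PIZ, so the marker of dentate gyrus was abundant on both sides, and no difference passed the test (log2 0.08 ± 0.17, adjusted p = 0.729). Calb1 and Dsp were lower with kainate than with saline on both sides, with no overlap within a side. Calb1, a calcium-binding protein of mature granule cells, lay between 25.6 and 93.3 CPM in kainate mice and between 105 and 186 CPM in saline mice. Dsp, a junction protein of granule cells, reached 69.9 CPM with kainate against a range of 64.4 to 169 CPM with saline. C1ql2, which is secreted at mossy fiber synapses, was at 17.4, 32.9, 169 and 32.7 CPM in the EZ against 126, 137, 219 and 174 CPM in the PIZ, with only mouse 44 near its other side (log2 -1.94, adjusted p = 0.0129). In saline mice it lay between 102 and 134 CPM in the EZ and between 55.2 and 114.5 CPM in the PIZ, so in the PIZ it was higher with kainate. Expression of Xist, from the inactive X chromosome of females, was high in both libraries of mice 38 and 30 and near 0 in both libraries of mice 44 and 42, so the sexes matched within every pair. In bulk tissue, fewer cells of a type and less RNA per cell cannot be told apart.

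A total of 2034 of 21390 genes differed between the sides (9.51%) by edgeR's quasi-likelihood test with mouse as a block. Such genes, here called, had a p below 0.01 after Benjamini-Hochberg adjustment and changed more than 1.5-fold. Of these, 1229 were higher in the EZ (5.75%) and 805 were higher in the PIZ (3.76%). The difference was over 2-fold for 878 and 446 of them, over 4-fold for 252 and 135, and over 16-fold for 42 and 5. All 4 mice had the same direction for 1185 of the 1229 and 794 of the 805. Among all 21390 genes tested, the 4 mice were all EZ-higher for 5514 and all PIZ-higher for 4884. The ranges of the 2 sides did not overlap for 1033 of the EZ-higher and 638 of the PIZ-higher genes. Of all genes tested the EZ lay above the PIZ for 14.1% and below it for 10.6%, together 24.79%. Called genes were selected by a test on these same differences, so their agreement is partly a result of selection. Protein-coding genes made up 1116 and 646 of the called genes, and long non-coding RNAs 44 and 78, or 3.58% and 9.69% beside 8.72% of all genes tested. The test drew its estimate of spread from all 48 libraries, and from the 8 libraries alone 1 of 19698 genes was called (0.00508%), with 7736 at an unadjusted p under 0.05. With an adjusted p below 0.05 the 8 libraries gave 2566 genes (13%), 1458 higher in the EZ (7.4%) and 1108 higher in the PIZ (5.62%).

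The 4 mice did not contribute equally. The median difference of the EZ-higher genes on the log2 scale was 1.9 in mouse 38, 1.01 in mouse 30, 0.64 in mouse 44 and 1.42 in mouse 42. For the PIZ-higher genes it was -1.4, -1.11, -0.44 and -1.17 in the same order. Mouse 44 had the smallest difference of the 4 mice for 913 of the 1229 and 707 of the 805 genes. Among 17133 genes with a mean above 1 CPM, the sides differed over 2-fold for 20.8%, 8.41%, 2.39% and 11.8% in mice 38, 30, 44 and 42, so mouse 44 lay within the range of the saline mice (2.28% to 4.56%). Without mouse 44 the number of called genes was 2896, and without mouse 38, 30 or 42 it was 302, 1008 and 468.

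The 10 genes that were higher in the EZ with the smallest p were Hmcn2, Cbfb, Spred1, Lilrb4b, Slfn4, Htr2b, Msr1, Ccr2, Rbpj and Ch25h. Hmcn2 (ENSMUSG00000055632, GRCm39 chr2:31204263-31350750), which encodes the matrix protein hemicentin-2, was at 23.7, 19.3, 20.1 and 29.3 CPM in the EZ against 1.82, 4.14, 1.88 and 2.004 CPM in the PIZ. All 4 EZ libraries lay above all PIZ libraries, by 9.704-fold in the fit (log2 3.28 ± 0.25, adjusted p = 1.47e-07), and saline mice were at 0.833 CPM in the EZ and 0.619 CPM in the PIZ. Cbfb (GRCm39 chr8:105897291-105944633), the partner subunit of Runx transcription factors, was at 88.8, 94.8, 45.2 and 73.7 CPM in the EZ against 32.9, 36.5, 24.3 and 30.7 CPM in the PIZ (log2 1.25 ± 0.10, adjusted p = 1.47e-07). Spred1 (GRCm39 chr2:116951524-117018277), an inhibitor of Ras and ERK signaling, was at 299, 384, 172 and 269 CPM in the EZ against 123, 149, 109 and 112 CPM in the PIZ (log2 1.14 ± 0.10, adjusted p = 4.79e-07). For both, the 2 sides were apart in every mouse, and mouse 44 had the smallest step. Rbpj, the DNA-binding effector of Notch signaling, was at 88.4, 119.7, 45.9 and 83.9 CPM in the EZ against 36.3, 40.9, 29.1 and 28.6 CPM in the PIZ (log2 1.26 ± 0.14, adjusted p = 8.72e-06), again with the lowest EZ level in mouse 44.

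The other leading EZ-higher genes belong to myeloid cells or to lipid and amine signaling. Msr1, a scavenger receptor of macrophages, was at 80.96, 26.97, 7.91 and 47.8 CPM in the EZ against 0.323, 1.52, 0.639 and 0.716 CPM in the PIZ (log2 5.35 ± 0.57, adjusted p = 8.72e-06). The 4 EZ libraries spread widely among themselves and still lay above every PIZ library. Lilrb4b, an inhibitory receptor of myeloid cells, was at 59.9, 12.8, 4.97 and 34.5 CPM in the EZ against 0.646, 1.11, 0.5995 and 0.6202 CPM in the PIZ (log2 4.79 ± 0.48, adjusted p = 6.99e-06), and Ch25h, which makes 25-hydroxycholesterol, at 45.1, 28.9, 8.08 and 32.8 CPM in the EZ against 1.29, 2.499, 1.998 and 1.76 CPM in the PIZ (log2 3.72 ± 0.42, adjusted p = 1.52e-05). In both cases mouse 38 had the highest and mouse 44 the lowest EZ level. Slfn4, a Schlafen gene of myeloid cells, ranged from 1.39 to 7.16 CPM in the EZ and 0.242 to 0.6202 CPM in the PIZ (log2 3.21 ± 0.32, adjusted p = 6.99e-06). Htr2b, a serotonin receptor, had 379, 99, 31 and 287 counts in the EZ and 1, 3, 1 and 0 counts in the PIZ (adjusted p = 8.72e-06), and no fold is given because every PIZ count was 3 or lower. Cd5l, which encodes a protein secreted by macrophages and was chosen after its values were seen, was at 141, 14.6, 4.29 and 92.6 CPM in the EZ against 0.323, 0.819, 0.3996 and 0.191 CPM in the PIZ (log2 6.54 ± 0.69, adjusted p = 3.50e-05), so it too was highest in mouse 38 and lowest in mouse 44.

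**Figure D1:**
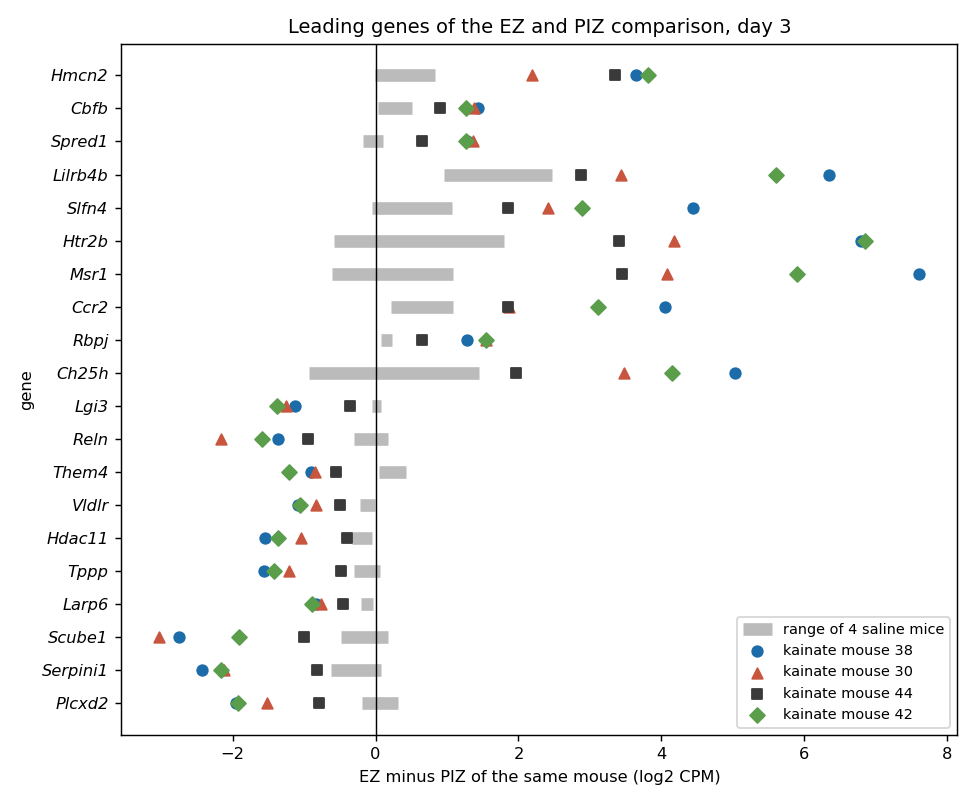
Difference between EZ and PIZ of the same mouse (log2 CPM, x axis) for the 10 EZ-higher and 10 PIZ-higher genes with the smallest p. Points are the 4 kainate mice, grey bars the range of the 4 saline mice; in every gene shown the 4 kainate mice lie on 1 side of 0, and mouse 44 (squares) is nearest to 0 in most of them.

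The 10 PIZ-higher genes with the smallest p were Lgi3, Reln, Them4, Vldlr, Hdac11, Tppp, Larp6, Scube1, Serpini1 and Plcxd2. Reln (ENSMUSG00000042453, GRCm39 chr5:22089452-22549700), the secreted glycoprotein reelin that interneurons and Cajal-Retzius cells make and that positions granule cells, was at 24.4, 9.76, 26.6 and 23.2 CPM in the EZ against 63.2, 44.2, 51.2 and 70.3 CPM in the PIZ (log2 -1.51 ± 0.16, adjusted p = 8.72e-06). Vldlr (GRCm39 chr19:27193862-27231631), 1 of the receptors for reelin, was at 40.4, 56.5, 84.5 and 48.5 CPM in the EZ against 86.1, 101, 119 and 101 CPM in the PIZ (log2 -0.87 ± 0.10, adjusted p = 1.74e-05). The ligand and the receptor were thus both lower in the EZ of every mouse, with no overlap of the sides. Scube1, a secreted EGF-domain protein, was at 7.58, 5.51, 4.55 and 3.92 CPM in the EZ against 51.3, 45.5, 9.19 and 14.98 CPM in the PIZ (log2 -2.23 ± 0.28, adjusted p = 5.71e-05), with the PIZ levels of mice 38 and 30 well above those of mice 44 and 42. Serpini1, which encodes the neuronal protease inhibitor neuroserpin, was at 14.2, 16.6, 52.03 and 20.8 CPM in the EZ against 76.6, 72.7, 92.2 and 93.4 CPM in the PIZ (log2 -1.89 ± 0.24, adjusted p = 6.17e-05). Tppp, a protein that promotes tubulin polymerization, ranged from 147 to 250 CPM in the EZ and 350.3 to 431 CPM in the PIZ (log2 -1.17 ± 0.14, adjusted p = 3.84e-05). Lgi3, a secreted synaptic protein, was at 38.5, 33.5, 98.9 and 46.4 CPM in the EZ against 84.2, 80.1, 127 and 120.2 CPM in the PIZ (log2 -1.03 ± 0.11, adjusted p = 8.72e-06). In mouse 44 the EZ level of Lgi3 exceeded the PIZ level of mice 38 and 30, so its ranges overlapped although every mouse had the lower value in the EZ. Them4, Hdac11, Larp6 and Plcxd2 had log2 differences of -0.88 ± 0.09, -1.09 ± 0.13, -0.74 ± 0.09 and -1.56 ± 0.21 (SE), and all 20 leading genes were also called when any 1 of the 4 mice was left out.

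In most of the 44 gene lists examined the called members lay on 1 side only. Called members were only EZ-higher in 22 lists and only PIZ-higher in 13, on both sides in 5 and absent in 4, those of mature granule cells, choroid plexus, blood and cholesterol synthesis. Over all genes tested 5.75% were EZ-higher and 3.76% PIZ-higher, and the median log2 difference was 0.02. The counts of called members below are to be read beside these shares. A single called member is close to them, as in the lists of Wnt ligands (1 of 15) and canonical Wnt mediators (1 of 22). The most EZ-higher members were in the proliferation (18), immediate early (16) and reactive astrocyte (16) lists, and the most PIZ-higher members in the interneuron (10), synaptic vesicle and scaffold (8) and neuropeptide (7) lists.

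**Figure D2:**
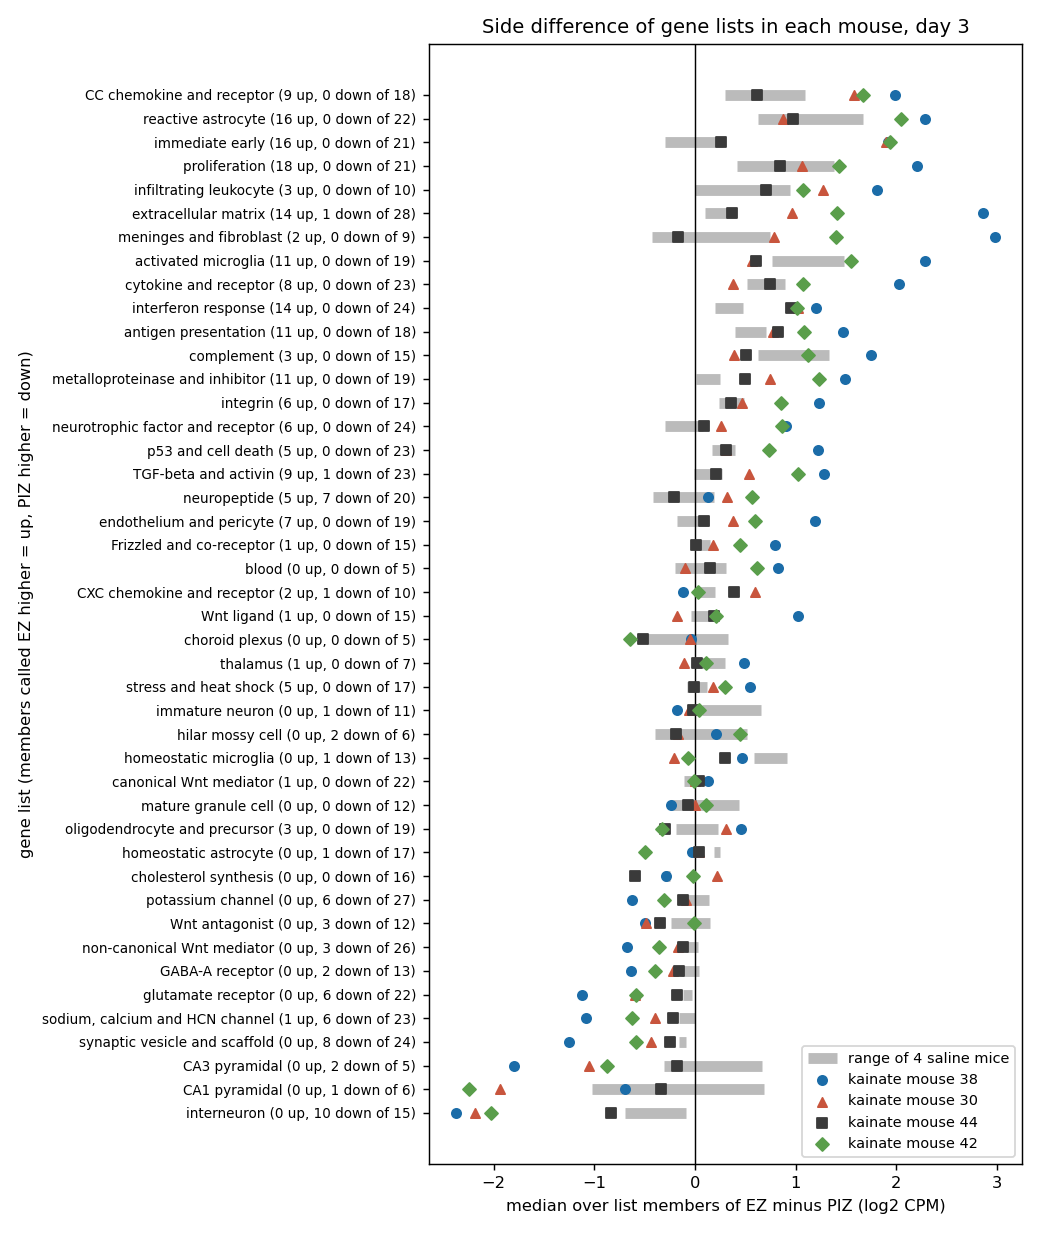
Median over the members of each of the 44 gene lists of EZ minus PIZ in the same mouse (log2 CPM, x axis), with the numbers of members called in each direction beside the list name. Points are the 4 kainate mice and grey bars the range of the 4 saline mice; the interneuron list lies furthest to the left, and mouse 44 is nearest to 0 for 25 of the 44 lists.

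Chemokines and cytokines recruit and activate immune cells, and 9 of 18 CC chemokine and receptor genes were EZ-higher and none PIZ-higher (median log2 1.67). The median log2 of a list is over the fitted values of its members, whereas that of a single mouse is over its own differences in log2 CPM. These 2 measures can differ. The median of a list between the sides of each saline mouse is given for comparison, here 0.30 to 1.09 over the 4 saline mice against 1.98, 1.58, 0.62 and 1.67 in the kainate mice. Ccl2, the main attractant of monocytes, was at 11.6, 5.32, 5.43 and 8.96 CPM in the EZ against 0.364, 0.983, 0.719 and 0.573 CPM in the PIZ (log2 3.49 ± 0.53, adjusted p = 0.000293). Its receptor Ccr2, which marks blood monocytes, was at 18.9, 6.24, 3.999 and 15.5 CPM in the EZ against 1.05, 1.64, 1.04 and 1.72 CPM in the PIZ (log2 2.81 ± 0.30, adjusted p = 8.72e-06). Ligand and receptor were both apart between the sides in all 4 mice. Ccl3, a macrophage inflammatory protein, was at 12.4, 6.58, 2.44 and 8.81 CPM in the EZ against 0.929, 1.39, 0.639 and 0.716 CPM in the PIZ (log2 2.9 ± 0.44, adjusted p = 0.000223), and Ccl5 ranged from 0.884 to 2.87 CPM in the EZ and 0.0819 to 0.716 CPM in the PIZ (log2 2.66 ± 0.45, adjusted p = 0.000536). Among 10 CXC chemokine genes, Cxcl10 and Cxcl16 were EZ-higher and Cxcl5 was PIZ-higher (fitted median log2 0.39). The medians of the kainate mice were -0.12, 0.59, 0.39 and 0.03 against 0.00 to 0.19 in saline mice, so mouse 38 lay below and mouse 42 within the saline range. Cxcl16 was at 44.9, 22, 9.93 and 34.97 CPM in the EZ against 5.09, 5.33, 6.19 and 6.11 CPM in the PIZ (log2 2.12 ± 0.40, adjusted p = 0.00102). Cxcl5, an attractant of neutrophils, was at 0.421, 0.2295, 2.399 and 0.726 CPM in the EZ against 3.15, 1.597, 4.04 and 3.34 CPM in the PIZ (log2 -1.98 ± 0.48, adjusted p = 0.00511), and in saline mice the order was the opposite with 2.61 CPM in the EZ and 0.261 CPM in the PIZ. The calls of Ccl2, Ccr2, Ccl3 and Ccl5 held without each of the 4 mice in turn, that of Cxcl5 was lost without mouse 38, 30 or 42, and that of Cxcl16 was lost without mouse 38 or 42. Without mice 38, 30, 44 and 42 in turn, 5, 6, 9 and 5 CC genes were called.

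Of 23 cytokine and receptor genes, 8 were EZ-higher and none PIZ-higher (median log2 1.12, kainate mice 2.02, 0.38, 0.74 and 1.07, saline mice 0.52 to 0.89), and Il6 had too few counts to be tested. Lif, a cytokine of the interleukin-6 family, was at 26.5, 13.8, 9.47 and 15.5 CPM in the EZ against 3.11, 5.33, 2.64 and 3.48 CPM in the PIZ (log2 2.11 ± 0.35, adjusted p = 0.000435). Tnf, a main inflammatory cytokine, was at 2.68, 1.11, 0.547 and 1.96 CPM in the EZ against 0.121, 0.287, 0.0799 and 0.143 CPM in the PIZ (log2 3.18 ± 0.56, adjusted p = 0.000775). Its levels were low and the sides did not overlap. Tnfrsf12a, the receptor for TWEAK, was at 41.01, 34.2, 20.3 and 31.4 CPM in the EZ against 8.36, 11.1, 8.55 and 8.396 CPM in the PIZ (log2 1.77 ± 0.36, adjusted p = 0.00177), and Csf1, the growth factor of microglia and macrophages, at 109, 73.6, 102 and 102 CPM in the EZ against 40.97, 57.1, 45.9 and 48.3 CPM in the PIZ (log2 1.0 ± 0.22, adjusted p = 0.0028). Il1b, chosen after its values were seen, was at 2.33, 0.536, 0.758 and 1.16 CPM in the EZ against 0.121, 0.123, 0.3597 and 0.573 CPM in the PIZ (log2 1.96 ± 0.49, adjusted p = 0.00621), with the EZ of mouse 30 below the PIZ of mouse 42. The abundant signal transducers Stat3 (175 to 223 CPM in the EZ and 109 to 172 CPM in the PIZ) and Il6st (140.4 to 201 CPM in the EZ and 112 to 128 CPM in the PIZ) had log2 differences of 0.63 ± 0.19 and 0.43 ± 0.15 and were not called. The call of Lif held without each of the 4 mice in turn, that of Il1b was lost without mouse 38, 30 or 42, and those of Tnf, Tnfrsf12a and Csf1 were lost without mouse 38 or 42. With mice 38, 30, 44 and 42 left out in turn, 1, 4, 7 and 1 members of the list were called.

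Interferon-stimulated genes form the antiviral program that interferon receptors switch on, and 14 of 24 were EZ-higher and none PIZ-higher (median log2 1.1). In contrast to most lists, the medians of the 4 mice were close, at 1.2, 1.02, 0.95 and 1.02, and all lay above the saline mice (range 0.20 to 0.47). Promoter windows of the members Cxcl10 and Bst2 are shown because each holds matches to the interferon-stimulated response element, searched on both strands as a pair of GAAA half-sites with any 2 bases between them. The sequences are from RefSeq on GRCm38.p6 and end 1 base before the annotated start, both genes lie on the minus strand, and capitals mark the matches. The Cxcl10 window is chr5:92348890-92349139 with its match 213 bases before the start, and the Bst2 window is chr8:71537473-71537722 with overlapping matches 130 and 124 bases before the start.
Cxcl10: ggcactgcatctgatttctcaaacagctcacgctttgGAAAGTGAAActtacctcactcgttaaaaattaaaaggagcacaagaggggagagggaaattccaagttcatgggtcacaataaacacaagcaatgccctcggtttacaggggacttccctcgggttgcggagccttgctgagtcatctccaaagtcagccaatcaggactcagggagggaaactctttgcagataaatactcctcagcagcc
Bst2: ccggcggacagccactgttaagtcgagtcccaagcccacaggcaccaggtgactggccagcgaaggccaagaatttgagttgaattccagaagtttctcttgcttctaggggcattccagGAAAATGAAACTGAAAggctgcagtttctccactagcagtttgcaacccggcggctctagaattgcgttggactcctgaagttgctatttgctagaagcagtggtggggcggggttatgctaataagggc
Such a match was found in 11 of 22 windows of the interferon list, in 5% of 1079 windows of EZ-higher genes, in 2.19% of 730 windows of PIZ-higher genes and in 2.98% of all 32851 windows of this length. RefSeq windows were found for 18 of the 24 list members, 876 EZ-higher and 513 PIZ-higher genes. A match is a description of the letters and no evidence of binding.

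Cxcl10, the chemokine with the ISRE match above, was at 22.3, 16.3, 16.1 and 21.04 CPM in the EZ against 1.98, 1.39, 6.23 and 3.005 CPM in the PIZ (log2 2.75 ± 0.43, adjusted p = 0.000295). The EZ levels were close in the 4 mice, and the PIZ of mouse 44 was the highest of the PIZ libraries. Bst2, which tethers budding viruses, was at 62.9, 28.4, 29.5 and 55.6 CPM in the EZ against 20.9, 11.5, 12.6 and 16.4 CPM in the PIZ (log2 1.47 ± 0.27, adjusted p = 0.000902). Ifitm3, a membrane protein that blocks viral entry, was at 123, 76.02, 75.2 and 96.4 CPM in the EZ against 46.1, 37.9, 40.2 and 49.9 CPM in the PIZ (log2 1.07 ± 0.23, adjusted p = 0.00255), and Irf7, the transcription factor that amplifies the response, at 50.7, 24.8, 30.4 and 48.5 CPM in the EZ against 21.8, 8.68, 8.55 and 15.7 CPM in the PIZ (log2 1.54 ± 0.34, adjusted p = 0.00259). Isg15, a ubiquitin-like protein chosen after its values were seen, was at 23.8, 8.42, 16.6 and 19.1 CPM in the EZ against 8.97, 3.77, 6.19 and 7.299 CPM in the PIZ (log2 1.35 ± 0.35, adjusted p = 0.00706), with each mouse higher in the EZ but the ranges overlapping. Relative to the mean of saline mice on the same side, the list was higher by 3.19, 2.1, 2.69 and 2.62 on the log2 scale in the EZ and by 2.35, 1.18, 1.95 and 2.06 in the PIZ, so the PIZ was also above saline. The call of Cxcl10 held without each of the 4 mice in turn, those of Ifitm3 and Irf7 were lost without mouse 38, 30 or 42, that of Isg15 was lost without any 1 of the 4, and that of Bst2 was lost without mouse 38 or 42. Leaving out mice 38, 30, 44 and 42 in turn left 1, 4, 9 and 1 members called.

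Antigen presentation genes load peptides on MHC molecules, and 11 of 18 were EZ-higher and none PIZ-higher (median log2 1.02, saline mice 0.40 to 0.70). The MHC class II genes had the largest differences. H2-Aa was at 48.2, 12.5, 4.12 and 36.3 CPM in the EZ against 0.849, 1.35, 1.24 and 1.76 CPM in the PIZ (log2 3.82 ± 0.65, adjusted p = 0.000536), and H2-Ab1 at 44.99, 11.7, 4.29 and 36.2 CPM in the EZ against 1.13, 1.93, 1.56 and 1.86 CPM in the PIZ (log2 3.44 ± 0.59, adjusted p = 0.00054). Cd74, the invariant chain of class II, was at 88.04, 23.5, 9.72 and 67.7 CPM in the EZ against 1.58, 2.46, 2.56 and 4.39 CPM in the PIZ (log2 3.73 ± 0.67, adjusted p = 0.000709). For these and H2-Eb1 (log2 3.67 ± 0.63, adjusted p = 0.00054) the EZ of mouse 38 was the highest, that of mouse 44 the lowest, and the sides did not overlap. Of the class I pathway, the heavy chains H2-K1 and H2-Q4, the regulator Nlrc5 and the peptide processing and loading genes Tap2, Tapbp and Psmb8 were called EZ-higher, with log2 differences from 0.71 ± 0.18 for Tap2 to 1.21 ± 0.29 for Nlrc5. These 6 were named after their values were seen, and H2-K1 was at 223, 130, 91.4 and 194 CPM in the EZ against 75.8, 61.6, 48.9 and 85.6 CPM in the PIZ (log2 1.18 ± 0.27, adjusted p = 0.00362). B2m, the light chain of class I, was at 649, 356, 248 and 493 CPM in the EZ against 239.9, 213, 152 and 267 CPM in the PIZ (log2 0.94 ± 0.26, adjusted p = 0.0101, not called), and the class I heavy chain H2-D1 ranged from 121 to 323 CPM in the EZ and 75.7 to 129 CPM in the PIZ (log2 1.06 ± 0.30, adjusted p = 0.013, not called). The calls of H2-Aa, H2-Ab1 and H2-Eb1 held without each of the 4 mice in turn, that of Cd74 was lost without mouse 38, those of H2-K1, H2-Q4, Tap2 and Tapbp were lost without mouse 38, 30 or 42, that of Psmb8 was lost without any 1 of the 4, and that of Nlrc5 was lost without mouse 38, 44 or 42. Without mice 38, 30, 44 and 42 in turn, 3, 6, 9 and 4 members were called.

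Complement tags cells and synapses for removal, and 3 of 15 complement genes were EZ-higher (median log2 0.93). Saline mice also had EZ-higher list medians, of 0.63 to 1.33 against 1.75, 0.39, 0.51 and 1.12 in kainate mice, and 0, 3, 3 and 0 genes were called without mice 38, 30, 44 and 42 in turn. These were C3ar1, C3 and C5ar1, the central component of the cascade and the receptors for fragments of C3 and C5. C3ar1 was at 139.7, 44.8, 21.1 and 87.2 CPM in the EZ against 10.7, 13.3, 9.75 and 12.3 CPM in the PIZ (log2 2.36 ± 0.45, adjusted p = 0.00115), and C3 at 27.6, 23.1, 15.3 and 33.1 CPM in the EZ against 5.17, 6.14, 8.35 and 9.59 CPM in the PIZ (log2 1.75 ± 0.34, adjusted p = 0.00122). Both were apart between the sides, and C3ar1 was highest in the EZ of mouse 38 and lowest in that of mouse 44. C5ar1 ranged from 6.69 to 30.9 CPM in the EZ and 2.06 to 4.997 CPM in the PIZ (log2 2.35 ± 0.51, adjusted p = 0.00257). C1qa, the microglial starter of the classical pathway, was at 670, 336, 289 and 514 CPM in the EZ against 152, 188, 173 and 188 CPM in the PIZ and was not called (log2 1.29 ± 0.38, adjusted p = 0.016). C4b, made by reactive astrocytes, was at 252, 214, 205 and 232 CPM in the EZ against 192, 167, 182 and 220.2 CPM in the PIZ and was not called (log2 0.25 ± 0.20, adjusted p = 0.358). The calls of C3ar1, C3 and C5ar1 were lost without mouse 38 or 42.

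Of 19 genes of activated microglia, 11 were EZ-higher and none PIZ-higher (median log2 1.13), whereas of 13 homeostatic microglia genes only Siglech was called, and it was PIZ-higher (median log2 0.12). The activated list also differed between the sides of saline mice, by a median of 0.76 to 1.48 against 2.29, 0.57, 0.60 and 1.55 in the 4 kainate mice, of which mice 30 and 44 were below the saline range. For the homeostatic list the saline mice had 0.59 to 0.91, above all kainate mice (0.47, -0.20, 0.30 and -0.07). Spp1, which encodes the secreted protein osteopontin, was at 4400, 701, 129 and 2557 CPM in the EZ against 8.57, 35.1, 14.3 and 5.58 CPM in the PIZ (log2 6.28 ± 0.94, adjusted p = 0.000217). The EZ of mouse 38 was far above that of mouse 44, and each EZ level was above all PIZ levels. Cd68, a lysosomal protein of phagocytes, was at 305, 93.96, 51.3 and 199 CPM in the EZ against 20.1, 30.1, 25.1 and 26.8 CPM in the PIZ (log2 2.37 ± 0.47, adjusted p = 0.00138). Cst7 and Clec7a, markers of the disease-associated state, had log2 differences of 2.11 ± 0.28 (adjusted p = 9.05e-05) and 2.13 ± 0.39 (adjusted p = 0.000902). The lysosomal proteases Ctsd (2018 to 6642 CPM in the EZ and 1084 to 1452 CPM in the PIZ) and Ctsb (1097 to 3536 CPM in the EZ and 723 to 885 CPM in the PIZ) were also called, at log2 1.55 ± 0.40, adjusted p = 0.00714 and log2 1.24 ± 0.34, adjusted p = 0.00955. Siglech was at 14.5, 17.5, 41 and 19.8 CPM in the EZ against 41.4, 44.2, 44.2 and 52 CPM in the PIZ (log2 -1.09 ± 0.27, adjusted p = 0.00529), with mouse 44 nearly level. P2ry12, the microglial ADP receptor, chosen after its values were seen, was at 43.6, 49.7, 88.2 and 42.8 CPM in the EZ against 85.3, 85.1, 88.8 and 87.9 CPM in the PIZ and was not called (log2 -0.70 ± 0.20, adjusted p = 0.0113), again with the sides of mouse 44 alike. The calls of Spp1 and Cst7 held without each of the 4 mice in turn, that of Clec7a was lost without mouse 38, those of Ctsd, Ctsb and Siglech were lost without mouse 38, 30 or 42, and that of Cd68 was lost without mouse 38 or 42. With mice 38, 30, 44 and 42 left out in turn, 2, 7, 11 and 3 activated microglia genes were EZ-higher and 0, 0, 4 and 0 homeostatic microglia genes PIZ-higher.

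Markers of blood leukocytes were examined because they could contribute to the immune genes. Of 10 tested members 3 were EZ-higher (Ccr2, Itgal and Ms4a4b), the list median was 1.38 (kainate mice 1.80, 1.28, 0.71 and 1.07, saline mice 0.00 to 0.94), and the summed level of the list lay from 73.5 to 182 CPM in the EZ, from 51.6 to 64.4 CPM in the PIZ and from 12.3 to 35.8 CPM in saline mice. Itgal, the leukocyte integrin chain, was at 8.95, 3.56, 1.6 and 6.82 CPM in the EZ against 0.404, 0.491, 0.839 and 0.668 CPM in the PIZ (log2 2.9 ± 0.49, adjusted p = 0.000513), and Ms4a4b, a T cell membrane protein, at 0.765, 0.306, 0.379 and 0.508 CPM in the EZ against 0.0808, 0.04096, 0.2398 and 0.191 CPM in the PIZ (log2 1.8 ± 0.47, adjusted p = 0.00733), both below 1 CPM in the PIZ. The T, B and NK cell and neutrophil markers Cd3e, Cd3g, Cd8a, Ms4a1, Nkg7 and Ly6g had too few counts to be tested. Ptprc, the common leukocyte antigen that microglia also carry, was at 69.9, 35.9, 29.1 and 50.6 CPM in the EZ against 24.9, 31.2, 23.3 and 30.1 CPM in the PIZ and was not called (log2 0.69 ± 0.29, adjusted p = 0.0701). The part of infiltrating cells in the immune gene differences was not tested. The call of Itgal was lost without mouse 38 and that of Ms4a4b was lost without mouse 38, 30 or 42. The list had 1, 2, 4 and 2 called members without mice 38, 30, 44 and 42 in turn.

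Reactive astrocyte genes were the list with the most EZ-higher members beside the immediate early and proliferation lists, 16 of 22 with none PIZ-higher (median log2 1.62). Saline mice also had EZ-higher medians of this list, from 0.63 to 1.67, against 2.28, 0.88, 0.98 and 2.04 in kainate mice, so mice 30 and 44 lay within the saline range. Tgm1, a cross-linking transglutaminase, was at 199, 181, 113 and 211 CPM in the EZ against 37.01, 45.6, 25.7 and 45.3 CPM in the PIZ (log2 2.19 ± 0.25, adjusted p = 1.52e-05), and Timp1, an inhibitor of metalloproteinases, at 112, 68.02, 40.5 and 80.7 CPM in the EZ against 14.99, 26.9, 14.03 and 15.2 CPM in the PIZ (log2 2.04 ± 0.24, adjusted p = 2.95e-05). Neither overlapped between the sides. Ptx3, a secreted pentraxin, was at 48.6, 21.4, 18.8 and 33.8 CPM in the EZ against 2.06, 4.75, 3.76 and 1.81 CPM in the PIZ (log2 3.26 ± 0.53, adjusted p = 0.000385), and Serpina3n, a secreted protease inhibitor, at 1332, 1615, 1200 and 1476 CPM in the EZ against 473, 907, 734 and 503 CPM in the PIZ (log2 1.15 ± 0.30, adjusted p = 0.00818). Gfap, the filament protein that defines reactive astrocytes, was at 4875, 5565, 5524 and 4710 CPM in the EZ against 4107, 4549, 4398 and 4422 CPM in the PIZ and was not called (log2 0.24 ± 0.23, adjusted p = 0.431), although saline mice had 2130 CPM in the EZ and 347 CPM in the PIZ. The list was above the saline mean of the same side by 3.3, 2.89, 2.25 and 3.17 in the EZ and 1.77, 2.63, 2.33 and 1.84 in the PIZ, so in mice 30 and 44 the elevation was similar on both sides. Of 17 homeostatic astrocyte genes (median log2 -0.10, saline mice 0.19 to 0.25) 1 was called, the PIZ-higher link protein Hapln1 at 20.1, 22.04, 28.1 and 18.4 CPM in the EZ against 39.2, 31.1, 31.1 and 40.98 CPM in the PIZ (log2 -0.69 ± 0.15, adjusted p = 0.00242). The glutamate transporter Slc1a2 was at 1384, 1988, 2290 and 1697 CPM in the EZ against 2867, 2400, 2423 and 3044 CPM in the PIZ, and its log2 difference of -0.56 ± 0.15 (adjusted p = 0.0076) was within 1.5-fold and not called. Glul, which makes glutamine, was at 902, 771, 1003 and 899.7 CPM in the EZ against 883, 767, 911 and 1345 CPM in the PIZ (log2 -0.10 ± 0.11, adjusted p = 0.504). The calls of Tgm1, Timp1 and Ptx3 held without each of the 4 mice in turn, that of Serpina3n was lost without mouse 38, 30 or 42, and that of Hapln1 was lost without mouse 38 or 42. Leaving out mice 38, 30, 44 and 42 in turn left 3, 13, 15 and 6 reactive astrocyte genes EZ-higher and 0, 2, 4 and 0 homeostatic astrocyte genes PIZ-higher.

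**Figure D3:**
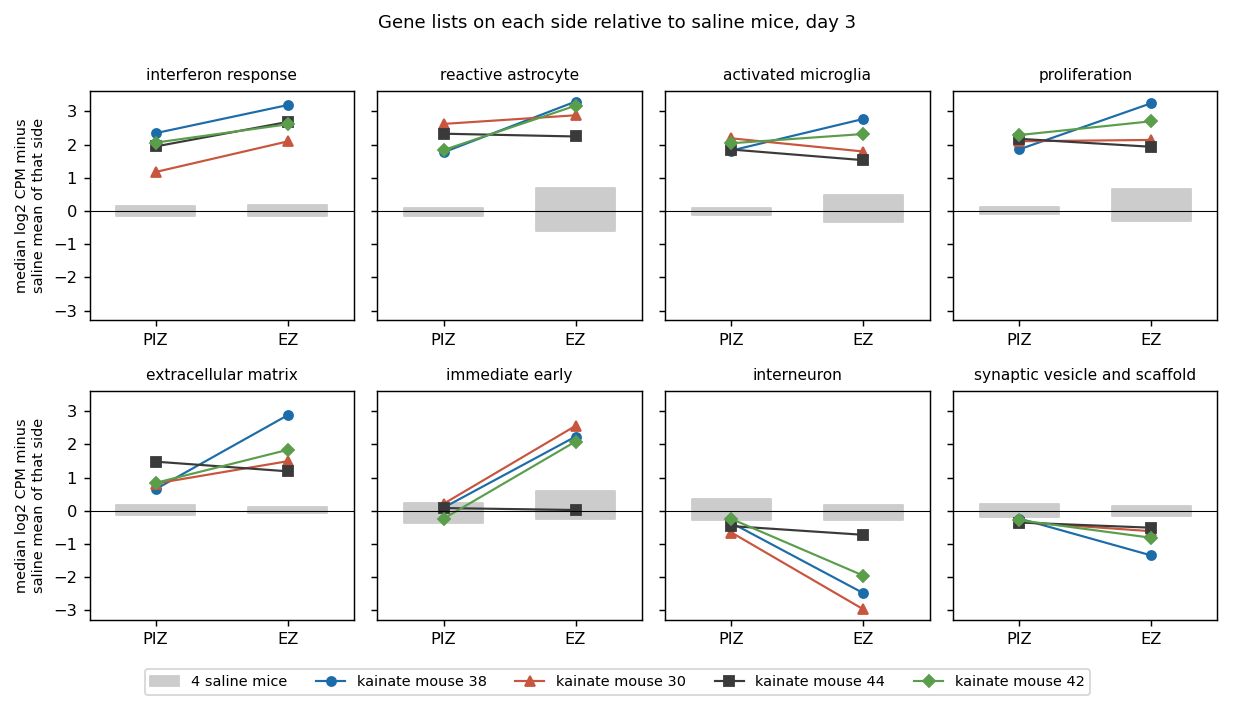
Level of 8 gene lists in the PIZ and the EZ of each kainate mouse relative to the mean of the saline mice on the same side (median over members, log2 CPM, y axis), with grey boxes for the range of the 4 saline mice. The interferon, reactive astrocyte, activated microglia and proliferation lists are above the saline range on both sides in every mouse, whereas the immediate early list is raised in the EZ of 3 mice and stays near 0 in mouse 44 and in the PIZ.

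Cell cycle genes were EZ-higher for 18 of 21 members and none was PIZ-higher (median log2 1.47). Saline mice also had EZ-higher medians, from 0.41 to 1.38, and of the kainate mice (2.2, 1.06, 0.84 and 1.43) mice 30 and 44 lay within that range. Mcm5 and Mcm2, subunits of the helicase that opens DNA for replication, were at 40.8, 22.99, 16.6 and 32.2 CPM in the EZ against 10.8, 11.2, 9.03 and 10.7 CPM in the PIZ (log2 1.36 ± 0.20, adjusted p = 0.000176) and at 36.4, 19.3, 15.5 and 26.5 CPM in the EZ against 8.49, 10.2, 8.27 and 9.398 CPM in the PIZ (log2 1.36 ± 0.23, adjusted p = 0.000471). Mki67, the proliferation marker Ki-67, was at 137, 68.3, 49.3 and 84.99 CPM in the EZ against 19.6, 27.6, 26.7 and 23.1 CPM in the PIZ (log2 1.71 ± 0.41, adjusted p = 0.00474). In all 3 genes the sides were apart and mouse 38 was highest. Pcna, the sliding clamp of DNA polymerase, was at 93.7, 59.1, 43.6 and 71.2 CPM in the EZ against 36.2, 37.2, 34.5 and 39.4 CPM in the PIZ (log2 0.81 ± 0.16, adjusted p = 0.00149). Relative to saline of the same side the list was higher by 3.25, 2.14, 1.94 and 2.71 in the EZ and by 1.86, 2.1, 2.18 and 2.29 in the PIZ. The calls of Mcm5 and Mcm2 held without each of the 4 mice in turn, that of Mki67 was lost without mouse 38, 30 or 42, and that of Pcna was lost without mouse 38 or 42. With mice 38, 30, 44 and 42 left out in turn, 2, 12, 20 and 5 members were called.

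Of 23 p53 and cell death genes 5 were EZ-higher: Cdkn1a, Ripk3, Ripk1, Eda2r and Mlkl. The list median was 0.67, with 1.22, 0.30, 0.31 and 0.73 in the kainate mice, of which mice 30 and 44 lay within the saline range of 0.17 to 0.40, and 0, 3, 5 and 0 members were called without mice 38, 30, 44 and 42 in turn. Cdkn1a, the p53 target that arrests the cell cycle, was at 58.1, 45.2, 18.9 and 47.2 CPM in the EZ against 11.3, 16.9, 12.8 and 7.82 CPM in the PIZ (log2 1.74 ± 0.33, adjusted p = 0.00117). Ripk1, Ripk3 and Mlkl, the 3 core proteins of necroptosis, had log2 differences of 0.83 ± 0.19, 2.0 ± 0.40 and 1.78 ± 0.43 (adjusted p = 0.00332, 0.00151 and 0.00469). Eda2r, a receptor induced by p53, had log2 1.73 ± 0.40, adjusted p = 0.00407. Ripk3 and Mlkl stayed under 4 CPM. The p53 regulator Mdm2 was at 54.8, 48.2, 45.4 and 45.2 CPM in the EZ against 44.8, 47.4, 44.2 and 43.2 CPM in the PIZ and was not called (log2 0.11 ± 0.06, adjusted p = 0.204). Of 17 stress and heat shock genes 5 were EZ-higher: Hmox1, Hspb1, Mt1, Mt2 and Hspa5 (median log2 0.17, kainate mice 0.54, 0.18, -0.01 and 0.30, saline mice -0.07 to 0.12). Hmox1, which degrades heme, was at 65.1, 44, 52.6 and 43.8 CPM in the EZ against 10.1, 12.9, 10.6 and 11.9 CPM in the PIZ (log2 2.16 ± 0.31, adjusted p = 0.000173), with mouse 44 not the lowest in the EZ. The metallothionein Mt1 was at 473, 427, 292 and 523 CPM in the EZ against 208, 186, 198 and 327 CPM in the PIZ (log2 0.91 ± 0.16, adjusted p = 0.000803), and Hspa5, the chaperone of the endoplasmic reticulum, ranged from 231 to 484 CPM in the EZ and 207 to 271 CPM in the PIZ (log2 0.70 ± 0.15, adjusted p = 0.00188). Mt2 and the small heat shock protein Hspb1 had log2 differences of 1.21 ± 0.23 and 1.98 ± 0.34. Hsp90aa1 was at 434, 489, 359 and 438 CPM in the EZ against 545, 513, 488 and 467 CPM in the PIZ and was not called (log2 -0.23 ± 0.12, adjusted p = 0.137). The call of Hmox1 held without each of the 4 mice in turn, those of Hspb1, Mt1 and Mt2 were lost without mouse 38, those of Mlkl and Eda2r were lost without mouse 38, 30 or 42, and those of Cdkn1a, Ripk1, Ripk3 and Hspa5 were lost without mouse 38 or 42.

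Extracellular matrix genes were EZ-higher for 14 of 28 members and PIZ-higher for 1, Hapln1 (median log2 1.26, saline mice 0.10 to 0.41). Thbs1, a matrix protein of injured tissue that promotes synapse formation, was at 124, 119, 8.798 and 90.9 CPM in the EZ against 2.101, 3.85, 3.64 and 2.72 CPM in the PIZ (log2 4.41 ± 0.69, adjusted p = 0.000312). The EZ level of mouse 44 was far below the others yet above all PIZ levels. Has2, which makes hyaluronan, was at 11.4, 5.05, 3.28 and 6.28 CPM in the EZ against 0.727, 1.15, 0.999 and 0.906 CPM in the PIZ (log2 2.64 ± 0.35, adjusted p = 8.86e-05). Sparc, an abundant matrix glycoprotein, was at 824, 667, 576 and 703 CPM in the EZ against 476, 473, 433 and 551 CPM in the PIZ and was not called (log2 0.51 ± 0.23, adjusted p = 0.0896). Of 19 metalloproteinase and inhibitor genes 11 were EZ-higher (median log2 0.85, saline mice 0.01 to 0.24). Timp4 was at 65.1, 79.5, 52.8 and 66.6 CPM in the EZ against 37.5, 38.3, 34.9 and 42.7 CPM in the PIZ (log2 0.77 ± 0.11, adjusted p = 0.000135), with a small and even step in all mice. Adam12, a membrane protease, was at 40.8, 27.1, 9.64 and 29.3 CPM in the EZ against 5.13, 8.48, 5.83 and 5.53 CPM in the PIZ (log2 1.96 ± 0.32, adjusted p = 0.000432). Mmp12, the macrophage elastase, had 214, 20, 5 and 108 counts in the EZ and 0, 3, 1 and 0 counts in the PIZ (adjusted p = 0.00033), and no fold is given. Integrins, the receptors for matrix, were EZ-higher for 6 of 17 members (median log2 0.71, kainate mice 1.23, 0.47, 0.36 and 0.85, saline mice 0.24 to 0.49), with Itga5, a receptor for fibronectin, at 72.5, 35.2, 21.9 and 51 CPM in the EZ against 6.99, 10.1, 9.03 and 7.01 CPM in the PIZ (log2 2.33 ± 0.41, adjusted p = 0.000619) and Itgav at 284, 318, 155 and 232 CPM in the EZ against 106, 146, 94.8 and 96.3 CPM in the PIZ (log2 1.13 ± 0.19, adjusted p = 0.00054). For the integrin list mice 30 and 44 lay within the saline range. The calls of Hmcn2, Thbs1, Has2, Timp4, Adam12 and Itgav held without each of the 4 mice in turn and those of Mmp12 and Itga5 were lost without mouse 38. Without mice 38, 30, 44 and 42 in turn, 5, 8, 17 and 5 matrix, 3, 8, 12 and 6 metalloproteinase and 1, 5, 7 and 3 integrin genes were EZ-higher, and 0, 2, 2 and 0 matrix genes were PIZ-higher.

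TGF-beta and activin genes, which control scarring and inflammation, were EZ-higher for 9 of 23 members and PIZ-higher for 1 (median log2 0.65, kainate mice 1.28, 0.54, 0.21 and 1.025, saline mice -0.01 to 0.26). Tgfbi, a matrix protein induced by TGF-beta, was at 138, 52.8, 23.4 and 104 CPM in the EZ against 5.17, 10.5, 9.15 and 5.87 CPM in the PIZ (log2 3.12 ± 0.48, adjusted p = 0.000253). Inhba, the subunit of activin A that neuronal activity also induces, was at 159.8, 196, 14.3 and 101 CPM in the EZ against 49.3, 31.9, 11.3 and 12.7 CPM in the PIZ (log2 1.95 ± 0.34, adjusted p = 0.000593), and the EZ of mouse 44 was below the PIZ of mice 38 and 30. Ltbp1, which stores latent TGF-beta in the matrix, was at 42.1, 41.5, 23.5 and 26.1 CPM in the EZ against 12.6, 16.2, 17.7 and 11.02 CPM in the PIZ (log2 1.19 ± 0.19, adjusted p = 0.000316). Gdf10, a member of the same ligand family, was lower in the EZ, at 1.61, 1.19, 3.16 and 1.42 CPM in the EZ against 7.64, 4.05, 4.16 and 7.35 CPM in the PIZ (log2 -1.68 ± 0.33, adjusted p = 0.00133). The receptor Acvr1 was at 86.3, 118, 79.8 and 96.8 CPM in the EZ against 74.03, 84.1, 67.02 and 69.3 CPM in the PIZ, and its log2 difference of 0.36 ± 0.07 (adjusted p = 0.00178) was within 1.5-fold. The calls of Tgfbi and Ltbp1 held without each of the 4 mice in turn, that of Gdf10 was lost without mouse 38 or 42, and that of Inhba was lost without mouse 42. Without mice 38, 30, 44 and 42 in turn, 3, 6, 10 and 4 members were EZ-higher.

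Of 19 endothelial and pericyte genes 7 were EZ-higher and none PIZ-higher (median log2 0.53, kainate mice 1.19, 0.38, 0.09 and 0.59, saline mice -0.18 to 0.14). Cdh5 and Pecam1, junction proteins of endothelial cells, were at 46.5, 22.6, 22.6 and 31.9 CPM in the EZ against 12.8, 13.8, 20.3 and 15.5 CPM in the PIZ (log2 0.94 ± 0.22, adjusted p = 0.00353) and 62.5, 36.1, 29.1 and 43.5 CPM in the EZ against 20.7, 21.6, 28.9 and 19.99 CPM in the PIZ (log2 0.87 ± 0.20, adjusted p = 0.00388). In mouse 44 the sides were nearly level for Pecam1. Mfsd2a, the lipid transporter of the blood-brain barrier, was at 51.2, 55.3, 23.6 and 54.8 CPM in the EZ against 29.6, 24.6, 14.9 and 26.6 CPM in the PIZ (log2 0.92 ± 0.16, adjusted p = 0.000617). Vwf, the von Willebrand factor, was at 264, 119.8, 96.7 and 158 CPM in the EZ against 39.7, 67.4, 96.5 and 43.8 CPM in the PIZ (log2 1.35 ± 0.36, adjusted p = 0.0088). Without mice 38, 30, 44 and 42 in turn, 1, 1, 10 and 1 members were called. Of 9 meningeal and fibroblast markers (median log2 1.18, saline mice -0.43 to 0.75) Pdgfra and Lum (log2 1.76 ± 0.43, adjusted p = 0.00537) were EZ-higher, and the summed level of the list lay from 152 to 536 CPM in the EZ, from 94.3 to 176 CPM in the PIZ and from 103 to 164 CPM in saline mice. Dcn, a defining fibroblast gene, was at 95.1, 28.6, 15.9 and 45.5 CPM in the EZ against 9.78, 16.5, 25.7 and 12.6 CPM in the PIZ and was not called (log2 1.31 ± 0.64, adjusted p = 0.116), and it was highest in the EZ of mouse 38. The matrix list also had its largest median in mouse 38, with 2.86, 0.97, 0.36 and 1.42 in the 4 mice, and the part of fibroblasts in it was not tested. None of 5 blood genes was called, with the globin gene Hbb-bs at 87.04, 36.3, 41.6 and 76.7 CPM in the EZ against 51.1, 41.5, 44 and 50.95 CPM in the PIZ (log2 0.27 ± 0.15, adjusted p = 0.172). Of 19 oligodendrocyte lineage genes Cspg4, Pdgfra and Olig1 were EZ-higher (median log2 -0.00, kainate mice 0.46, 0.30, -0.30 and -0.33, saline mice -0.19 to 0.23). Pdgfra is also counted in the fibroblast list, and the lineage genes Olig2, Sox10, Gpr17, Enpp6 and Bcas1 were not called. Cspg4 was at 70.1, 43.8, 27.7 and 58.9 CPM in the EZ against 18.6, 19.7, 21.5 and 22.9 CPM in the PIZ (log2 1.2 ± 0.20, adjusted p = 0.00054) and Pdgfra at 134, 103, 56.1 and 103 CPM in the EZ against 38.6, 72.5, 58.7 and 38.3 CPM in the PIZ (log2 0.92 ± 0.21, adjusted p = 0.00407). Olig1 had a log2 difference of 0.70 ± 0.17. The myelin gene Mbp was at 1526, 1035, 736 and 1116 CPM in the EZ against 1097, 736, 962 and 1341 CPM in the PIZ and was not called (log2 0.08 ± 0.25, adjusted p = 0.834). The call of Mfsd2a held without each of the 4 mice in turn, that of Cspg4 was lost without mouse 38, those of Cdh5, Pecam1, Vwf, Lum and Olig1 were lost without mouse 38, 30 or 42, and that of Pdgfra was lost without mouse 38 or 42.

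Immediate early genes report recent neuronal activity, and 16 of 21 were EZ-higher and none PIZ-higher (median log2 1.52). The medians of the 4 mice were 1.92, 1.9, 0.26 and 1.94, so mouse 44 stood apart from the others and lay within the range of the saline mice (-0.30 to 0.28). Npas4, a transcription factor that calcium entry induces in neurons, was at 91.3, 107, 6.36 and 49.6 CPM in the EZ against 7.68, 3.77, 3.44 and 4.91 CPM in the PIZ (log2 3.27 ± 0.53, adjusted p = 0.000401). Egr2 was at 13.1, 15, 0.421 and 7.94 CPM in the EZ against 0.849, 1.19, 0.3197 and 0.573 CPM in the PIZ (log2 3.38 ± 0.44, adjusted p = 7.59e-05). In both genes 3 mice had EZ levels far above every PIZ library, and the EZ of mouse 44 was among the PIZ levels. Arc, which regulates synaptic AMPA receptors, was at 267, 316, 32.1 and 274 CPM in the EZ against 70.8, 69.2, 34.8 and 45.8 CPM in the PIZ (log2 1.7 ± 0.31, adjusted p = 0.000812), with mouse 44 slightly lower in the EZ than in the PIZ. Fos, chosen after its values were seen, was at 122, 87.6, 18.1 and 77.3 CPM in the EZ against 12.2, 12.5, 9.15 and 8.21 CPM in the PIZ (log2 2.63 ± 0.45, adjusted p = 0.00054), and all 4 EZ levels were above the PIZ. Fosl1 and Junb, which are also induced in glia, had log2 differences of 3.11 ± 0.47 and 1.43 ± 0.24 with no overlap of the sides. Egr3 was at 161, 298, 105 and 187 CPM in the EZ against 98.4, 116, 103 and 78.4 CPM in the PIZ (log2 0.84 ± 0.19, adjusted p = 0.00308). Against saline of the same side the list was shifted by 2.24, 2.56, 0.02 and 2.09 in the EZ and by 0.09, 0.21, 0.08 and -0.24 in the PIZ, so the PIZ stayed near the saline level. The calls of Egr2, Npas4, Fos, Fosl1 and Junb held without each of the 4 mice in turn, that of Egr3 was lost without mouse 38, 30 or 42, and that of Arc was lost without mouse 38 or 42. Leaving out mice 38, 30, 44 and 42 in turn left 7, 10, 18 and 6 members called.

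Neuropeptide genes differed in both directions, with 5 of 20 EZ-higher and 7 PIZ-higher (fitted median log2 0.63). The medians of the kainate mice were 0.13, 0.31, -0.20 and 0.56, of which mice 38 and 44 lay within the saline range of -0.42 to 0.19. Without mice 38, 30, 44 and 42 in turn, 2, 1, 6 and 1 were EZ-higher and 2, 4, 5 and 2 PIZ-higher. Windows of Cartpt and Sst are shown because the genes differed in opposite directions although each holds the same cAMP response element, TGACGTCA, searched on both strands. They are from RefSeq on GRCm38.p6, minus strand, ending 1 base before the start, with the element in capitals. The Cartpt window is chr13:99900684-99900933, with the element 112 bases before the start, and the Sst window is chr16:23890845-23891094, with the element 48 bases before it.
Cartpt: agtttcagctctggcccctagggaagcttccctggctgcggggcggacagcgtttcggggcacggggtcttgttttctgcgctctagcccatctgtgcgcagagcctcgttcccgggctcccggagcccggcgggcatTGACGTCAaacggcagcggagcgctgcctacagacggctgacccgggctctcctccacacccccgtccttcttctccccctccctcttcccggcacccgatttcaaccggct
Sst: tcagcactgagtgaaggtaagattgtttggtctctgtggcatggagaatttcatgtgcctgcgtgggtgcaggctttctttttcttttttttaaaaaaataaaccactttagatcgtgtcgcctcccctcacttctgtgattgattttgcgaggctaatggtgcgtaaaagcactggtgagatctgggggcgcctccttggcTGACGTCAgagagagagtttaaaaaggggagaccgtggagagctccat
The element was found in 2.5% of the windows of EZ-higher genes, 1.64% of those of PIZ-higher genes, 1.55% of all windows and 2.28% of those of the genes tested, so its share in EZ-higher genes was near that of the genes tested. Of the neuropeptide list, Scg2 also held it. The Sst window also held a match to the interferon element, which is not marked. The activity-related AP-1 word TGANTCA, searched in the same way, was in 8.8%, 3.29% and 6.75% of these windows and in 4.78% of those of the genes tested.

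Cartpt, the precursor of the CART peptide, was at 33.5, 82.5, 2.74 and 27.2 CPM in the EZ against 0.364, 0.369, 0.759 and 1.002 CPM in the PIZ (log2 5.5 ± 0.95, adjusted p = 0.000556). The EZ was far above the PIZ in mice 38, 30 and 42 and by less in mouse 44. Nptx2, a pentraxin that gathers AMPA receptors, was at 284, 546, 91.6 and 246 CPM in the EZ against 50.95, 116, 78.2 and 47.6 CPM in the PIZ (log2 1.86 ± 0.36, adjusted p = 0.00129), and Vgf, an activity-induced secreted precursor, at 204, 288, 73.8 and 234 CPM in the EZ against 70.5, 92.9, 75.3 and 57.7 CPM in the PIZ (log2 1.31 ± 0.34, adjusted p = 0.00811). For both the sides of mouse 44 differed little. Gal, the precursor of galanin, was at 6.81, 22.1, 10.4 and 6.71 CPM in the EZ against 1.86, 5.33, 6.59 and 1.34 CPM in the PIZ (log2 1.7 ± 0.38, adjusted p = 0.00332), with EZ values all above the PIZ. Penk, the precursor of enkephalin, was at 492, 1631, 282 and 504 CPM in the EZ against 55.2, 328, 345 and 61.02 CPM in the PIZ and was not called (log2 2.15 ± 0.65, adjusted p = 0.0177), and the PIZ of mice 30 and 44 was above that of the other mice. Chga, a granule protein of secretory cells, was called with overlapping ranges, at 125, 239, 94.5 and 166 CPM in the EZ against 132, 113, 56.5 and 78.2 CPM in the PIZ (log2 0.71 ± 0.18, adjusted p = 0.00622). Sst, the peptide of hilar interneurons, was at 2.18, 0.689, 12.4 and 5.37 CPM in the EZ against 31.1, 30.8, 42.4 and 42.2 CPM in the PIZ (log2 -3.24 ± 0.64, adjusted p = 0.00138), and Tac1, the precursor of substance P, at 0.957, 0.383, 1.05 and 2.32 CPM in the EZ against 4.16, 4.63, 4.28 and 5.2 CPM in the PIZ (log2 -2.09 ± 0.36, adjusted p = 0.000544). Pnoc, the precursor of nociceptin, was at 3.71, 3.21, 7.75 and 3.7 CPM in the EZ against 11.03, 14.5, 12.4 and 9.68 CPM in the PIZ (log2 -1.44 ± 0.20, adjusted p = 0.000147), and Cck was at 37.2, 34.1, 58.9 and 53.1 CPM in the EZ against 83.5, 70.8, 71.1 and 94.7 CPM in the PIZ (log2 -0.83 ± 0.17, adjusted p = 0.00173). These 4 peptides were apart between the sides in the direction opposite to Cartpt, and Sst and Cck were chosen after their values were seen. The calls of Cartpt, Tac1 and Pnoc held without each of the 4 mice in turn, that of Chga was lost without mouse 30, 44 or 42, those of Nptx2, Vgf, Gal and Cck were lost without mouse 38, 30 or 42, and that of Sst was lost without mouse 38 or 42.

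Growth factors were EZ-higher for 6 of 24 neurotrophic factor and receptor genes, and none was PIZ-higher (median log2 0.69, saline mice -0.30 to 0.08). Kitl, the ligand of the Kit receptor, was at 82.3, 80.95, 26.7 and 73.8 CPM in the EZ against 20.4, 19.7, 19.7 and 19.5 CPM in the PIZ (log2 1.62 ± 0.21, adjusted p = 6.17e-05). Its PIZ level was nearly the same in all mice and its EZ level was far higher in 3 of them, with a small step in mouse 44. Fgf2 was at 57.9, 48.3, 22.9 and 49.1 CPM in the EZ against 13.7, 16.5, 10.5 and 14.98 CPM in the PIZ (log2 1.62 ± 0.25, adjusted p = 0.000295) and Hbegf, a ligand of the EGF receptor, at 112, 99.5, 49.2 and 74 CPM in the EZ against 20, 28.3, 16.7 and 23.7 CPM in the PIZ (log2 1.88 ± 0.33, adjusted p = 0.000673). Bdnf, which seizures are known to induce in granule cells, was at 283, 539, 97.4 and 241 CPM in the EZ against 128, 124, 116 and 77.8 CPM in the PIZ (log2 1.18 ± 0.32, adjusted p = 0.00969), and Gdnf at 4.97, 8.11, 0.337 and 2.83 CPM in the EZ against 0.202, 0.573, 0.2798 and 0.286 CPM in the PIZ (log2 3.34 ± 0.61, adjusted p = 0.000953), both chosen after their values were seen. In both the EZ of mouse 44 was within the PIZ range. The receptors Ntrk2 (583 to 615 CPM in the EZ and 534 to 686 CPM in the PIZ) and Ntrk3 (204 to 285 CPM in the EZ and 251 to 358 CPM in the PIZ) were not called (log2 -0.01 ± 0.09 and -0.25 ± 0.22). The calls of Kitl and Fgf2 held without each of the 4 mice in turn, that of Hbegf was lost without mouse 38, that of Gdnf was lost without mouse 38 or 30, and that of Bdnf was lost without mouse 38, 30 or 42. With mice 38, 30, 44 and 42 left out in turn, 3, 4, 7 and 5 members were called.

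**Figure D4:**
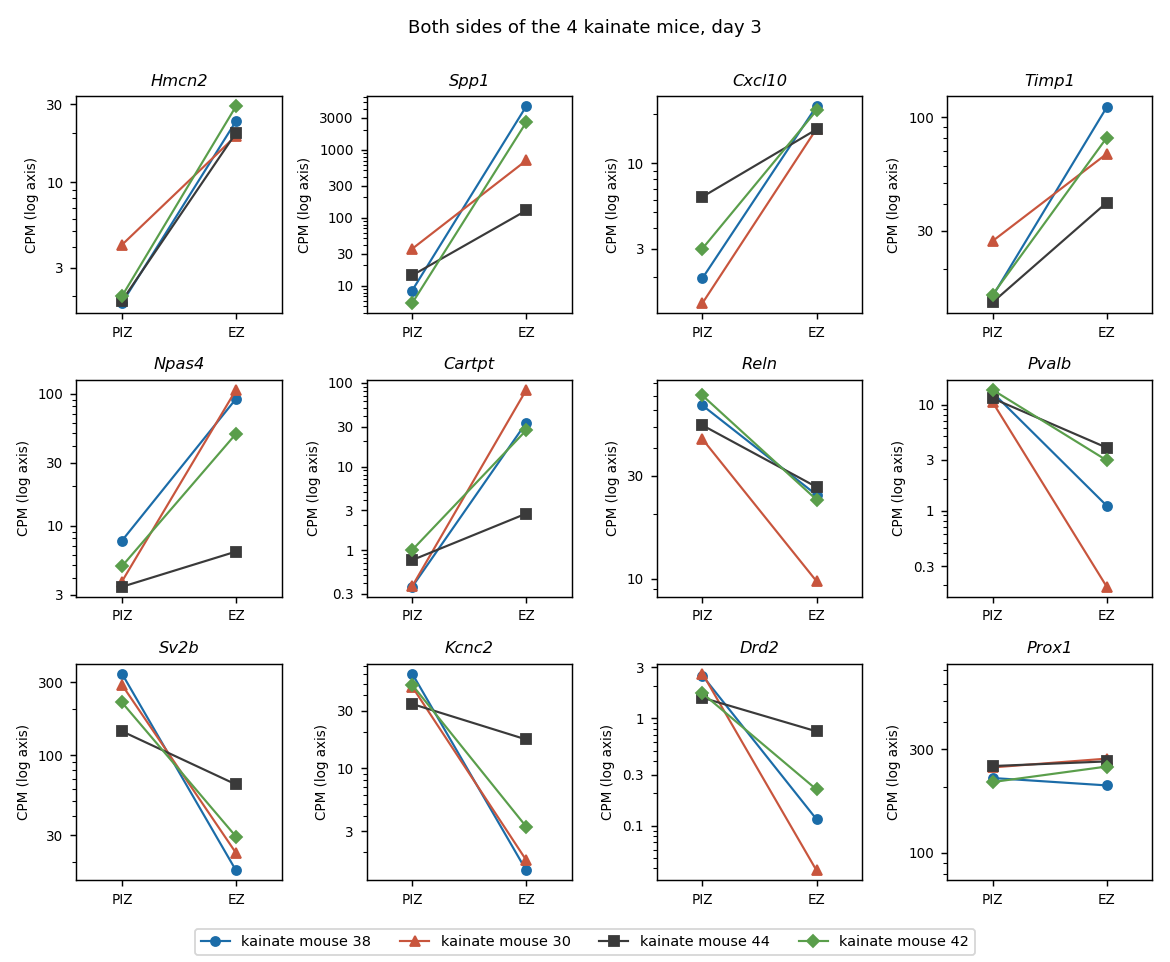
CPM (log axes) in the PIZ and the EZ of each kainate mouse for 12 genes, with lines joining the 2 sides of a mouse. Hmcn2, Spp1, Cxcl10 and Timp1 are higher in the EZ of every mouse, Npas4 and Cartpt rise least in mouse 44, and Reln, Pvalb, Sv2b, Kcnc2 and Drd2 are lower in the EZ of every mouse, whereas Prox1 stays between 204 and 272 CPM on both sides.

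Interneuron genes had the lowest median of all 44 lists, with 10 of 15 PIZ-higher and none EZ-higher (median log2 -1.93). The medians of the 4 mice were -2.38, -2.19, -0.83 and -2.03, and those of saline mice lay at -0.70 to -0.09. Pvalb, the calcium buffer of basket cells, was at 1.11, 0.191, 3.92 and 2.97 CPM in the EZ against 12.9, 10.5, 11.4 and 13.7 CPM in the PIZ (log2 -2.82 ± 0.41, adjusted p = 0.000166). Every EZ library was below every PIZ library, and the EZ of mouse 30 was lowest. Vip was at 0.689, 1.45, 3.66 and 1.78 CPM in the EZ against 6.63, 6.35, 7.27 and 8.44 CPM in the PIZ (log2 -2.07 ± 0.41, adjusted p = 0.00137), and Erbb4, a neuregulin receptor of interneurons, at 8.302, 5.89, 17.2 and 8.71 CPM in the EZ against 35.2, 27.2, 28.9 and 35.5 CPM in the PIZ (log2 -1.76 ± 0.29, adjusted p = 0.000394). Together with Reln and Sst, markers of several interneuron types were thus lower in the EZ of all 4 mice. Gad1, which makes GABA, was at 146, 232, 160.3 and 180.2 CPM in the EZ against 214, 212, 232 and 198 CPM in the PIZ and was not called (log2 -0.27 ± 0.16, adjusted p = 0.201). Relative to saline of the same side, the list was shifted by -2.48, -2.97, -0.72 and -1.96 in the EZ and by -0.36, -0.65, -0.46 and -0.25 in the PIZ. The calls of Reln, Pvalb and Erbb4 held without each of the 4 mice in turn and that of Vip was lost without mouse 38 or 42. With mice 38, 30, 44 and 42 left out in turn, 3, 5, 12 and 3 members were called.

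Among 6 markers of hilar mossy cells Drd2 and Nmb were PIZ-higher, but the fitted median of the list was on the other side (median log2 0.14, kainate mice 0.20, -0.17, -0.19 and 0.45, saline mice -0.39 to 0.52), and the summed level lay from 274 to 413 CPM in the EZ, from 144 to 309.5 CPM in the PIZ and from 68.3 to 126 CPM in saline mice, most of it from Sv2c. Drd2, the dopamine D2 receptor that mossy cells express, was at 0.115, 0.0383, 0.758 and 0.218 CPM in the EZ against 2.505, 2.62, 1.56 and 1.72 CPM in the PIZ (log2 -3.0 ± 0.61, adjusted p = 0.00171). Nmb was at 1.84, 1.49, 1.89 and 2.18 CPM in the EZ against 2.06, 2.21, 3.36 and 4.87 CPM in the PIZ (log2 -0.70 ± 0.18, adjusted p = 0.00656) with overlapping ranges. Sv2c was higher in the EZ of every mouse, at 205, 380.5, 380.3 and 286 CPM in the EZ against 138, 273, 260.4 and 109 CPM in the PIZ, and was not called (log2 0.74 ± 0.21, adjusted p = 0.0114). Pyramidal cell markers could mark neighboring fields in the dissection. The list of 6 CA1 markers had a fitted median log2 of -1.2. Its medians in the kainate mice were -0.70, -1.94, -0.34 and -2.25, of which mice 38 and 44 lay within the saline range of -1.02 to 0.69. Of these markers Mpped1 was PIZ-higher, at 2.79, 4.51, 60.5 and 4.82 CPM in the EZ against 36.9, 70.3, 66.3 and 79.9 CPM in the PIZ (log2 -2.99 ± 0.77, adjusted p = 0.00733), with the sides of mouse 44 close, and the summed level of the list lay from 59.6 to 176 CPM in the EZ, from 119 to 265 CPM in the PIZ and from 256 to 553 CPM in saline mice. Of 5 CA3 markers (median log2 -1.12, kainate mice -1.80, -1.06, -0.18 and -0.87, saline mice -0.31 to 0.67) Grik4 and Homer3 were PIZ-higher, and the summed level lay from 127 to 154 CPM in the EZ, from 162 to 328 CPM in the PIZ and from 130.2 to 349 CPM in saline mice. Grik4, a kainate receptor subunit, was at 16.8, 25.8, 40.2 and 18.1 CPM in the EZ against 96.3, 53.7, 50.7 and 59.2 CPM in the PIZ (log2 -1.4 ± 0.34, adjusted p = 0.005), and Homer3, a synaptic scaffold, at 26.6, 18.7, 32.6 and 31.9 CPM in the EZ against 93.02, 51.98, 41.3 and 58.4 CPM in the PIZ (log2 -1.12 ± 0.29, adjusted p = 0.00724). The part of pyramidal cells of neighboring fields in the neuronal differences was not tested. No mature granule cell marker of 12 was called (median log2 0.02, kainate mice -0.24, 0.00, -0.07 and 0.11, saline mice -0.24 to 0.44), but without mouse 44 the call was made for 1 EZ-higher and 2 PIZ-higher members. Relative to saline of the same side, this list was at -1.21, -0.73, -0.46 and -0.68 in the EZ, below all saline EZ libraries (-0.21 to 0.12), and at -0.20, -0.22, -0.29 and -0.44 in the PIZ, within the saline range (-0.54 to 0.41). The list of 11 immature neuron genes had a fitted median log2 of 0.15. Its medians in the 4 kainate mice were -0.18, -0.06, -0.02 and 0.04, all below the saline mice (0.07 to 0.65). From this list 1 gene was called, Insm1, a transcription factor of neuronal progenitors, at 0.306, 0.153, 0.589 and 0.218 CPM in the EZ against 3.35, 3.15, 1.72 and 2.19 CPM in the PIZ (log2 -3.03 ± 0.57, adjusted p = 0.00103). Dcx, the marker of young granule cells, was at 30, 24.5, 23.1 and 25.1 CPM in the EZ against 35.8, 33.1, 28.4 and 28.4 CPM in the PIZ and was not called (log2 -0.29 ± 0.26, adjusted p = 0.404). Thalamic and choroid plexus lists had 1 and 0 called members, with Rgs16 (log2 1.16 ± 0.32, adjusted p = 0.00968) the only one. The call of Insm1 was lost without mouse 38, those of Drd2, Mpped1, Grik4 and Homer3 were lost without mouse 38, 30 or 42, that of Nmb was lost without any 1 of the 4, and that of Rgs16 was lost without mouse 38, 44 or 42. The PIZ-higher CA1 and CA3 markers numbered 2 and 3 without mouse 44 and 0 without mouse 38, 30 or 42.

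Receptors and channels of neurons were PIZ-higher where they were called, with 1 exception. Of 22 glutamate receptor genes 6 were PIZ-higher (median log2 -0.55, saline mice -0.12 to -0.03), of 13 GABA-A receptor genes 2 (median log2 -0.35, saline mice -0.14 to 0.04), of 27 potassium channel genes 6 (median log2 -0.28, kainate mice -0.63, -0.09, -0.12 and -0.31, saline mice -0.10 to 0.14), and of 23 sodium, calcium and HCN channel genes 6 (median log2 -0.56, saline mice -0.16 to -0.00). The exception was the pacemaker channel Hcn4, which was EZ-higher at 3.94, 6.04, 2.23 and 2.68 CPM in the EZ against 1.54, 1.52, 1.399 and 1.53 CPM in the PIZ (log2 1.23 ± 0.29, adjusted p = 0.00388). Kcnc2, a fast potassium channel of interneurons, was at 1.42, 1.72, 17.3 and 3.27 CPM in the EZ against 60.8, 47.4, 34.01 and 48.99 CPM in the PIZ (log2 -3.63 ± 0.70, adjusted p = 0.00116). The EZ level was far below the PIZ level in mice 38, 30 and 42 and nearest to it in mouse 44. Kcnq5, an M-type potassium channel, was at 3.14, 4.29, 9.05 and 4.86 CPM in the EZ against 51.8, 30.8, 25.9 and 36.3 CPM in the PIZ (log2 -2.79 ± 0.53, adjusted p = 0.00111), and Kcnb2 at 6.92, 8.88, 11.8 and 7.87 CPM in the EZ against 24.3, 19.5, 18.3 and 18.99 CPM in the PIZ (log2 -1.21 ± 0.20, adjusted p = 0.000487). Scn1a, the sodium channel needed by interneurons, was at 17.7, 29.5, 47.3 and 25.5 CPM in the EZ against 75.1, 64.3, 63.5 and 65.6 CPM in the PIZ (log2 -1.24 ± 0.21, adjusted p = 0.000438). It was lower in the EZ of every mouse without overlap. Gria3, an AMPA receptor subunit, was at 79.2, 96.6, 127 and 93.8 CPM in the EZ against 170.5, 166, 164 and 151 CPM in the PIZ (log2 -0.74 ± 0.16, adjusted p = 0.00212), Grm4 and Grik1 had log2 differences of -1.16 ± 0.28 and -1.69 ± 0.40, and the abundant subunit Gria2 was at 473, 686, 567 and 579.5 CPM in the EZ against 828, 714, 631 and 716 CPM in the PIZ and was not called (log2 -0.33 ± 0.18, adjusted p = 0.164). Gabra3 was at 3.37, 3.25, 8.08 and 3.12 CPM in the EZ against 11.8, 15.5, 12.03 and 15.2 CPM in the PIZ (log2 -1.71 ± 0.41, adjusted p = 0.00444) and Gabrb2 at 37.6, 76.5, 119 and 54.2 CPM in the EZ against 111, 131, 157 and 123 CPM in the PIZ (log2 -0.98 ± 0.19, adjusted p = 0.00107). The call of Scn1a held without each of the 4 mice in turn, that of Kcnb2 was lost without mouse 38, those of Hcn4, Gria3, Grm4, Grik1 and Gabra3 were lost without mouse 38, 30 or 42, and those of Kcnc2, Kcnq5 and Gabrb2 were lost without mouse 38 or 42. Leaving out mice 38, 30, 44 and 42 in turn left 0, 0, 6 and 0 glutamate receptor, 0, 1, 2 and 0 GABA-A receptor, 1, 4, 8 and 1 potassium channel and 2, 4, 8 and 3 sodium, calcium and HCN channel genes PIZ-higher.

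Genes of synaptic vesicles and scaffolds were PIZ-higher for 8 of 24 members and EZ-higher for none (median log2 -0.64, saline mice -0.16 to -0.09). Sv2b, a vesicle protein, was at 17.6, 22.9, 64.4 and 29.4 CPM in the EZ against 342, 289, 143 and 222 CPM in the PIZ (log2 -3.02 ± 0.41, adjusted p = 9.41e-05). Its EZ level was far below the PIZ level in mice 38, 30 and 42 and nearer to it in mouse 44. Its relative Sv2a was at 146, 224, 278 and 189 CPM in the EZ against 311, 326, 313 and 315 CPM in the PIZ (log2 -0.63 ± 0.13, adjusted p = 0.00142), and the fusion protein Stx1a at 18.7, 19.3, 30.6 and 24.7 CPM in the EZ against 48.3, 43.3, 38.3 and 49.8 CPM in the PIZ (log2 -0.97 ± 0.19, adjusted p = 0.00142). Shank3, a scaffold of excitatory synapses, was at 89.6, 136, 192 and 117 CPM in the EZ against 226, 199, 219.8 and 248 CPM in the PIZ (log2 -0.79 ± 0.16, adjusted p = 0.00136). The abundant kinase Camk2a was at 1282, 1148, 2289 and 2065 CPM in the EZ against 3151, 2595, 2875 and 3368 CPM in the PIZ, lower in the EZ of every mouse but not called (log2 -0.88 ± 0.26, adjusted p = 0.014). The call of Sv2b held without each of the 4 mice in turn, that of Stx1a was lost without mouse 38, 30 or 42, and those of Sv2a and Shank3 were lost without mouse 38 or 42. With mice 38, 30, 44 and 42 left out in turn, 1, 4, 11 and 1 members were PIZ-higher, and 1 was EZ-higher without mouse 44.

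The study asked about Wnt signaling, in which secreted ligands bind Frizzled receptors and act through beta-catenin or through non-canonical calcium and polarity pathways. It compared kainate with saline mice on each side and reported early canonical activation in both zones, with staining for active beta-catenin. Here the 2 sides of the same mouse were compared, so a change of equal size on both sides does not appear. The lists take in genes that the study chose on these samples, so their direction is not independent evidence. Of 90 Wnt genes tested in 5 lists, 9 were called (10%), a share near the 9.51% of all genes tested, and without mice 38, 30, 44 and 42 in turn 4, 6, 16 and 4 were called. Of 15 ligands Wnt10b was EZ-higher, at 2.37, 4.05, 0.589 and 1.74 CPM in the EZ against 0.525, 0.246, 0.3996 and 0.334 CPM in the PIZ (log2 2.34 ± 0.43, adjusted p = 0.000814). Wnt9a, at 6.08, 2.14, 3.92 and 7.4 CPM in the EZ against 1.37, 1.52, 2.48 and 1.81 CPM in the PIZ (log2 1.35 ± 0.39, adjusted p = 0.0131), and Wnt5b (log2 0.93 ± 0.29, adjusted p = 0.0203) were not called. The abundant ligand Wnt7b was at 90.5, 119, 121 and 90.1 CPM in the EZ against 77.6, 112, 85.3 and 80.05 CPM in the PIZ (log2 0.24 ± 0.15, adjusted p = 0.207). Of 15 Frizzled and co-receptor genes Fzd1 was EZ-higher, at 26.7, 22.5, 9.81 and 19.8 CPM in the EZ against 8.12, 10.1, 6.83 and 9.59 CPM in the PIZ (log2 1.12 ± 0.23, adjusted p = 0.00171), whereas Lrp5 (log2 0.64 ± 0.19, adjusted p = 0.0138) and Ror2 (log2 1.6 ± 0.56, adjusted p = 0.0355) were not called. Of 22 canonical mediators the cyclin Ccnd1 was called, at 308, 137, 126 and 206 CPM in the EZ against 55.6, 91.8, 73.2 and 76.3 CPM in the PIZ (log2 1.31 ± 0.32, adjusted p = 0.00541). Ctnnb1, which encodes beta-catenin, was at 676, 710.4, 518 and 656 CPM in the EZ against 535, 561, 502 and 493 CPM in the PIZ and was not called (log2 0.28 ± 0.08, adjusted p = 0.0103). The feedback target Axin2 was at 20.4, 20.8, 27.5 and 21.98 CPM in the EZ against 22.4, 23.7, 29.1 and 26.2 CPM in the PIZ (log2 -0.16 ± 0.08, adjusted p = 0.137), Lef1 ranged from 4.97 to 8.61 CPM in the EZ and 4.12 to 6.02 CPM in the PIZ (log2 0.36 ± 0.15, adjusted p = 0.065), and Gsk3b and Apc had log2 differences of -0.32 ± 0.11 and -0.39 ± 0.14, none of them called. Wnt antagonists were PIZ-higher for 3 of 12 genes: Dkk3, Notum and Wif1. Dkk3 was at 108, 88.3, 133 and 94.2 CPM in the EZ against 269, 253, 165 and 226 CPM in the PIZ (log2 -1.11 ± 0.18, adjusted p = 0.000336), Notum, which inactivates Wnt ligands, at 1.19, 0.842, 1.09 and 0.798 CPM in the EZ against 2.34, 1.93, 2.398 and 2.24 CPM in the PIZ (log2 -1.19 ± 0.23, adjusted p = 0.00111), and Wif1 stayed under 1 CPM (log2 -1.49 ± 0.39, adjusted p = 0.00835). Of 26 non-canonical mediators 3 were PIZ-higher, among them Prkca and Ppp3r1. Prkca, a protein kinase C, was at 132, 142, 176 and 177 CPM in the EZ against 343, 237, 262 and 316 CPM in the PIZ (log2 -0.88 ± 0.14, adjusted p = 0.000295), and the calcineurin subunit Ppp3r1 at 325, 543, 585 and 402 CPM in the EZ against 1017, 1013, 778 and 751 CPM in the PIZ (log2 -0.96 ± 0.24, adjusted p = 0.00595). Rhoa (log2 0.48 ± 0.13, adjusted p = 0.00771) and Mapk9 (log2 -0.34 ± 0.09, adjusted p = 0.00889) passed the adjusted p but were within 1.5-fold. The calls of Dkk3 and Prkca held without each of the 4 mice in turn, that of Wnt10b was lost without mouse 30, those of Fzd1, Wif1 and Ppp3r1 were lost without mouse 38, 30 or 42, that of Ccnd1 was lost without mouse 38 or 42, and that of Notum was lost without mouse 42.

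In saline mice 13 of the 21390 genes differed between the sides (0.0608%), all higher on the injected side, and 1699 had an unadjusted p under 0.05. Without saline mouse 29, 37 or 41 the number was 6, 7 and 6, and without mouse 18 it was 9. For the EZ-higher genes of kainate mice the median log2 difference in saline mice was 0.28, and for the PIZ-higher genes it was -0.15. The difference between the side effects of kainate and saline mice, tested as an interaction, was called for 38 genes (0.178%), 19 in each direction (0.0888%), with 4644 at an unadjusted p under 0.05. Of the 1229 EZ-higher genes 19 and of the 805 PIZ-higher genes 11 were called in that interaction in the same direction. At an unadjusted p under 0.05 the numbers were 706 and 705, so for most called genes an effect beyond saline was not established at the adjusted threshold. Spred1 had the smallest p, at 1.28, 1.36, 0.66 and 1.26 on the log2 scale in the 4 kainate mice against a fitted -0.09 in saline mice (interaction log2 1.23 ± 0.14, adjusted p = 0.000171). Hmcn2 (log2 2.85 ± 0.41, adjusted p = 0.00185), Cbfb (log2 0.98 ± 0.14, adjusted p = 0.00184), Kitl (log2 1.9 ± 0.29, adjusted p = 0.0022), Egr2 (log2 3.76 ± 0.64, adjusted p = 0.00592) and Rbpj (log2 1.08 ± 0.19, adjusted p = 0.0077) also had larger differences with kainate. Etv4, a transcription factor downstream of FGF and ERK signaling, was at 11.9, 9.34, 7.07 and 10.6 CPM in the EZ against 4.404, 4.997, 3.76 and 5.58 CPM in the PIZ (log2 1.04 ± 0.14, adjusted p = 8.84e-05; interaction log2 1.59 ± 0.20, adjusted p = 0.000446), and Ctps1, which makes CTP, at 46.1, 46.6, 30.3 and 45.6 CPM in the EZ against 27.03, 24.99, 23.5 and 26.4 CPM in the PIZ (log2 0.71 ± 0.09, adjusted p = 3.47e-05; interaction log2 0.85 ± 0.12, adjusted p = 0.00185). Spry1, an inhibitor of the same pathway as Spred1, and Id2, an inhibitor of differentiation, were chosen after their values were seen and had interactions of 1.38 and 1.06 (adjusted p = 0.00487 and 0.0077). On the PIZ-higher side, Reln (log2 -1.41 ± 0.22, adjusted p = 0.00295), Lgi3 (log2 -1.03 ± 0.15, adjusted p = 0.00193), Them4 (log2 -1.09 ± 0.13, adjusted p = 0.00036) and Plcxd2 (log2 -1.55 ± 0.28, adjusted p = 0.00982) were called. Without kainate mouse 44 the interaction was called for 392 genes, without kainate mouse 38, 30 or 42 for 13, 15 and 10, and without saline mouse 29, 37, 18 or 41 for 8, 21, 16 and 9.

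Several genes, among them genes of reactive glia, differed more between the sides of saline mice than of kainate mice. Gfap, with a log2 difference of 2.55 in saline mice, was 1 of them (interaction log2 -2.31 ± 0.33, adjusted p = 0.00185). Against saline mice of the same side its levels in kainate mice were higher, in the fit without the mouse block, by log2 1.28 in the EZ (adjusted p = 0.0079) and 3.65 in the PIZ (adjusted p = 3.00e-07), so both sides were raised and the PIZ by more. Timp1 ranged from 1.68 to 13.96 CPM in the EZ and 0.0433 to 0.194 CPM in the PIZ in saline mice (interaction log2 -3.61 ± 0.56, adjusted p = 0.00288), and Tgm1 from 1.15 to 17.7 CPM in the EZ and 0 to 0.146 CPM in the PIZ (interaction log2 -4.45 ± 0.70, adjusted p = 0.00298). In both the EZ was still the higher side with kainate, but every PIZ library of kainate mice lay far above those of saline mice, and the fitted sizes rest on few counts in the saline PIZ. C4b (log2 -1.74 ± 0.29, adjusted p = 0.0053), Hspb6 (log2 -2.08 ± 0.35, adjusted p = 0.00487), Aspg (log2 -1.88 ± 0.32, adjusted p = 0.00592) and Glycam1 (log2 -4.53 ± 0.67, adjusted p = 0.00193) also had the larger difference in saline mice, and Glycam1 was lower in the EZ of every kainate mouse without being called (log2 -1.17 ± 0.38, adjusted p = 0.0255). Cxcl5 reversed, from 1.59 to 4.32 CPM in the EZ and 0.146 to 0.347 CPM in the PIZ in saline mice to the PIZ-higher values above (interaction log2 -5.18 ± 0.75, adjusted p = 0.00185). Gja1, the astrocyte connexin 43, was at 205, 175, 254 and 196 CPM in the EZ against 248, 203, 316 and 381 CPM in the PIZ, with saline means of 295 CPM in the EZ and 224 CPM in the PIZ (interaction log2 -0.83 ± 0.15, adjusted p = 0.00843), and Tmc6 was at 12.2, 8.34, 21.1 and 9.69 CPM in the EZ against 22.1, 27.8, 38.4 and 21.9 CPM in the PIZ, with saline means of 5.12 CPM in the EZ and 4.18 CPM in the PIZ (interaction log2 -1.43 ± 0.25, adjusted p = 0.0061), both chosen after their values were seen.

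**Figure D5:**
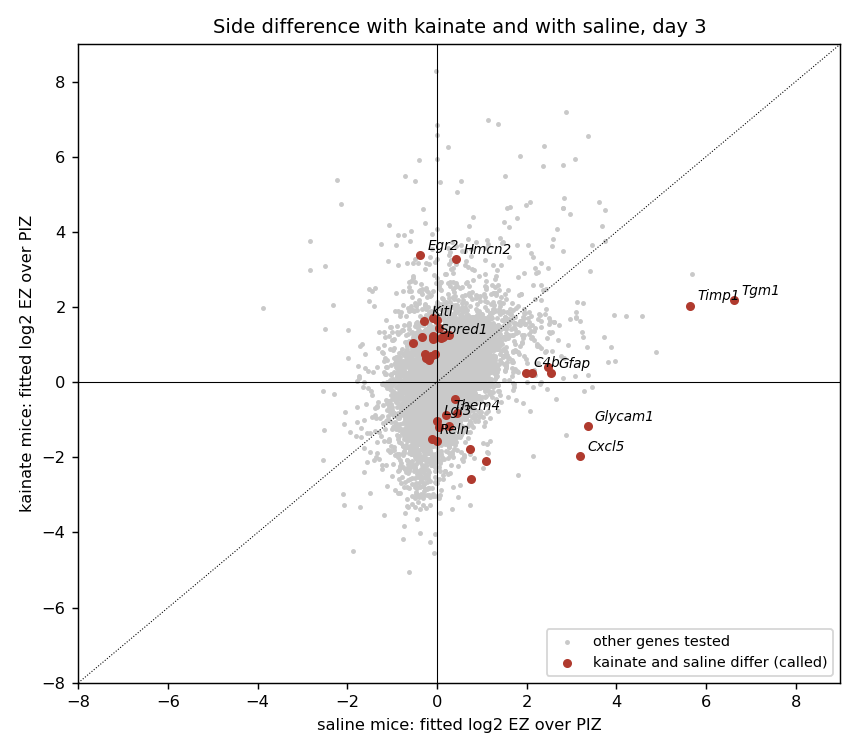
Fitted log2 EZ over PIZ of the 21390 genes tested in saline mice (x axis) and in kainate mice (y axis) at day 3, with the 38 genes whose difference between the 2 is called in red and the dotted line where both are equal. Hmcn2 and Egr2 lie high at an x value near 0, and Gfap, Timp1, Tgm1, Glycam1 and Cxcl5 lie far to the right of the dotted line.

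Between day 3 and day 7, 4 other kainate mice allowed a test of whether the side difference changed. It was called for 101 genes (0.472%), with 91 more EZ-higher (0.425%) and 10 more PIZ-higher (0.0468%) at day 7, and 4005 at an unadjusted p under 0.05. Of the 2034 genes called at day 3, 15 were among them, 10 EZ-higher and 5 PIZ-higher. Gfap differed by 0.25, 0.29, 0.33 and 0.09 in the 4 mice of day 3 and from 1.82 to 3.52 in those of day 7 (log2 2.17 ± 0.33, adjusted p = 0.00137). Tgm1 differed by 2.42, 1.99, 2.12 and 2.21 at day 3 and from 6.0 to 7.67 at day 7 (log2 4.65 ± 0.45, adjusted p = 1.73e-05). In both genes the mice of the 2 days did not overlap. Aldh1l1, a general astrocyte marker, was at 127, 144, 150.3 and 114 CPM in the EZ against 127, 163, 156 and 127 CPM in the PIZ at day 3 and differed from 1.01 to 1.85 at day 7 (log2 1.57 ± 0.18, adjusted p = 0.000154). The potassium channel Kcnj10 of astrocytes (log2 1.2 ± 0.17, adjusted p = 0.000811), C3 (log2 3.12 ± 0.49, adjusted p = 0.00183), Cst7 (log2 3.23 ± 0.41, adjusted p = 0.000391) and Siglech (log2 2.58 ± 0.38, adjusted p = 0.00106) moved in the same direction. For Reln the difference was smaller at day 7, from -0.82 to 0.20 against -1.37, -2.17, -0.94 and -1.59 at day 3 (log2 1.14 ± 0.22, adjusted p = 0.00901). Slc12a3, a salt cotransporter, was EZ-higher at day 3, at 2.18, 5.36, 2.27 and 3.08 CPM in the EZ against 0.445, 1.35, 0.679 and 0.573 CPM in the PIZ (log2 2.09 ± 0.24, adjusted p = 1.52e-05), whereas at day 7 the mice lay on both sides of 0, from -0.86 to 0.60 (log2 -2.45 ± 0.39, adjusted p = 0.00183). The transcript 9430081H08Rik (log2 -3.1 ± 0.47, adjusted p = 0.00127), Gnb5 (log2 -0.78 ± 0.13, adjusted p = 0.00278), Plekha6 (log2 -1.02 ± 0.13, adjusted p = 0.000391) and Abtb3 (log2 -1.68 ± 0.28, adjusted p = 0.00285) also moved toward the PIZ. Without mouse 38, 30, 44 or 42 the number called was 54, 36, 87 and 35.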

How the data were processed

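RNA-seq was analysed in the dorsal dentate gyrus of both hemispheres of 4 kainate mice at day 3, with 4 saline mice of day 3, 4 kainate mice of day 7 and the other groups of the series in the same fit (48 libraries of 24 mice). The deposited values are raw counts per gene, which the authors made from paired-end, stranded, polyA-selected reads with fastp 0.20.1, HISAT2 2.2.1 against GRCm39 and featureCounts (Subread 1.6.4) with the Gencode M28 annotation. Multi-mapping and overlapping reads were counted at their primary or largest overlap, so near-identical genes such as C4a and C4b, or the Mt and H2 families, may share reads. Gene symbols and positions were taken from a later Gencode release on GRCm39 for 98.9% of 55357 identifiers.

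Totals were 17762656 to 25712975 counts per library. Genes with sufficient counts by edgeR's filter over the 12 groups of 4 libraries were tested (21390, 99.9% of counts). Counts were fitted with edgeR 4.0.16 in R 4.3.3 (TMM, quasi-likelihood F test) with mouse as a block over all 48 libraries (18 residual degrees of freedom), and genes were called where the p after Benjamini-Hochberg adjustment was below 0.01 and the change exceeded 1.5-fold. Errors of log2 values are standard errors of this fit, which estimated spread over all 48 libraries. They are not the spread of the difference among the 4 kainate mice. Tests were two-sided. Contrasts were EZ against PIZ in kainate mice, the same in saline mice, and the differences of these between injections and between days. Libraries were paired because both came from the same animal. Deviations from the group means correlated by 0.30 to 0.50 within the saline pairs of day 3 and by 0.01, 0.38, 0.29 and 0.38 within mice 38, 30, 44 and 42. An exact sign-flip test over 4 mice cannot go below p = 0.125, so no such p is given. In data simulated for the kainate contrast with 20854 genes, 93% of 100 genes changed 2-fold and 100% of 100 changed 4-fold were called. The simulation gave all 4 mice the same change and all genes the same spread. Its shares therefore do not carry over to differences that vary between mice, as they did here.

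Named genes were, by rule, the 10 with the smallest p in each direction, up to 4 called members of each list with the smallest p and the 2 with the highest mean CPM, up to 5 per direction called in a difference between injections or days, every called member of lists with at most 5, and Wnt genes the study displayed. Exceptions are said to be chosen after their values were seen. The members and lists were chosen with earlier results of these data known. Alternatives used DESeq2 1.42.0, limma-voom (limma 3.58.1), other scaling, filters, thresholds, samples and no block.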

Additional observations from a re-analysis of the deposited data

Results flagged for a closer look

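In some of the genes and lists named here, 1 of the 4 kainate mice lay apart from the other 3 in its difference between EZ and PIZ, by a test of the gap to the nearest mouse that flags about 1 in 20 sets by chance (5%). Of 252 genes and lists tested in this way 19 were marked, and in 10 of them it was mouse 44. On the log2 scale its difference was 0.66 for Spred1 (1.26 to 1.36 in the others), 0.44 for Kitl (1.92 to 2.03), 0.32 for Egr2 (3.56 to 3.81), 0.23 for Nptx2 (2.23 to 2.48) and 0.26 for the immediate early list (1.90 to 1.94). Among PIZ-higher genes it was -0.74 for Erbb4 (-2.19 to -2.02), -0.64 for Grik1 (-2.12 to -1.90), -0.11 for Siglech (-1.50 to -1.33), -0.13 for Mpped1 (-4.03 to -3.68) and -2.14 for Glra3 (-4.77 to -4.52). Mouse 44 was nearest to 0 in each of these.

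In the other 9 a different mouse lay apart. Mouse 38 had 1.42 for Etv4 (0.89 to 0.91 in the others), 0.29 for Mdm2 (0.02 to 0.07) and 1.35 for H2-Q4 (0.83 to 0.90). Mouse 42 had -0.96 for Gja1 (-0.31 to -0.22), 1.39 for Sv2c (0.48 to 0.57), 0.20 for Hspb6 (0.45 to 0.47) and -0.50 for the homeostatic astrocyte list (-0.03 to 0.04). Mouse 30 had 1.14 for Isg15 (1.38 to 1.41) and -2.77 for Wif1 (-1.14 to -0.86).

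The side difference of kainate mice differed from that of saline mice, by the interaction test, for genes with a larger EZ side under kainate, by 2.85 for Hmcn2, 0.98 for Cbfb, 1.23 for Spred1, 1.08 for Rbpj, 1.06 for Id2, 1.38 for Spry1, 0.85 for Ctps1, 1.9 for Kitl, 3.76 for Egr2 and 1.59 for Etv4 on the log2 scale. It was shifted toward the PIZ by -1.03 for Lgi3, -1.41 for Reln, -1.09 for Them4, -1.55 for Plcxd2, -1.43 for Tmc6, -0.83 for Gja1 and -5.18 for Cxcl5. The same shift came from a larger difference in saline mice for Tgm1 (-4.45), Timp1 (-3.61), Glycam1 (-4.53), Hspb6 (-2.08), C4b (-1.74), Aspg (-1.88) and Gfap (-2.31).

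Between day 3 and day 7 the side difference moved toward the EZ by 4.65 for Tgm1, 3.08 for Timp1, 3.23 for Cst7, 3.12 for C3, 2.58 for Siglech, 2.06 for P2ry12, 6.53 for Trh, 3.58 for Glycam1, 2.14 for Hspb6, 1.67 for C4a, 1.73 for C4b, 1.88 for Aspg, 2.17 for Gfap, 1.57 for Aldh1l1, 1.2 for Kcnj10 and 1.14 for Reln. It moved toward the PIZ by -2.45 for Slc12a3, -3.10 for 9430081H08Rik, -0.78 for Gnb5, -1.02 for Plekha6 and -1.68 for Abtb3. Slc12a3 and 9430081H08Rik were EZ-higher at day 3.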

How the results depend on the processing

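The number of genes called between EZ and PIZ in kainate mice depended most on which mice and libraries entered. It was 2034 with all 48 libraries, 1 with the 8 libraries alone (3 residual degrees of freedom), 241 when the fold itself was tested against 1.5, 3179 with limma-voom, 3719 at an adjusted p under 0.05, and from 302 to 2896 without 1 mouse. Other scaling, filters, DESeq2 or the 16 libraries of day 3 gave 1718 to 2539, and scaling by library size alone moved the split from 1229 and 805 to 1490 and 663. Of 157 named genes called, 156 were also called by DESeq2, 154 by limma-voom, 146 with the 16 libraries, 151 without mouse 44, 110 without mouse 30, 82 without mouse 42 and 72 without mouse 38, and none changed direction. With the 8 libraries alone, at the same thresholds, 1 of the named calls remained and 154 were lost.

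In saline mice 13 genes were called, against 24 with 16 libraries, 65 with DESeq2, 192 with limma-voom, 23 without a filter, 30 at an adjusted p under 0.05, 7 with the fold tested, and 6 to 9 without 1 mouse. The interaction with saline gave 38, against 9 with 16 libraries, 326 with DESeq2, 1187 with limma-voom, 62 without a filter, 377 at 0.05, 0 with the fold tested by glmTreat (4644 at an unadjusted p under 0.05 in the main test), and 8 to 392 without 1 mouse. The change to day 7 gave 101, against 482 with DESeq2, 180 with limma-voom, 638 at 0.05, 20 with the fold tested, and 35 to 87 without 1 mouse of day 3, whereas the mice of day 7 were not left out. The cause of these differences was not tested.

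Without the replicate block the counts were 1741, 6, 14 and 37 in the same order, and 128 of the 157 named calls remained. Of 264 list medians under alternatives, 7 changed sign, all of lists whose medians lay between -0.00404 and 0.19: mature granule cell (-0.00042 and -0.02 without mouse 30 and 42), choroid plexus (-0.22 without mouse 38), immature neuron (-0.08 without mouse 30) and oligodendrocyte (0.06 with library size alone, 0.17 and 0.12 without mouse 42 and 44).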

Other observations

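A pair of genes was chosen after their values were seen. Glra3, a subunit of the glycine receptor, was at 0.0765, 0.153, 0.7998 and 0.0726 CPM in the EZ against 3.92, 6.55, 3.84 and 3.67 CPM in the PIZ (log2 -4.17 ± 0.82, adjusted p = 0.00133). Every EZ library lay below every PIZ library, and mouse 44 had the smallest step. The call of Glra3 was lost without mouse 38, 30 or 42. Trh, the precursor of thyrotropin-releasing hormone, was at 5.43, 6.43, 0.631 and 6.46 CPM in the EZ against 1.495, 2.58, 0.3996 and 0.477 CPM in the PIZ at day 3 (log2 1.92 ± 0.56, adjusted p = 0.0142), and its difference ranged from 6.9 to 9.15 in the mice of day 7. It was thus not called at day 3, and the change between the days was called (log2 6.53 ± 0.93, adjusted p = 0.000811).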
